A study of Mus musculus with 12 samples.

Results

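Brown adipose tissue of mice held at 4 °C for 72 hours was compared with the same tissue of mice held at 30 °C for 72 hours, across every gene of a raw count table. The comparison uses 6 of the 12 samples of the series, 3 cold and 3 thermoneutral, chosen by their labels for tissue and temperature and by nothing measured. The remaining samples are of subcutaneous white fat and were not compared here. Both groups were male, wild-type C57Bl/6 mice aged 8 to 12 weeks, fed freely, with 10 mice at each temperature in the study. The groups carried no transgene, mutation or drug, and differed, per the labels, only in temperature. Each library was made from 1000 ng of total RNA and read as pairs of 100 nt. Whether a library is 1 animal or a pool is not given, so the p-values below measure the spread between these libraries, which may be technical. The name of cold library 1 begins with the word Merged, and what was merged is not given.

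Brown fat is a tissue that burns fuel to make heat. Cold drives sympathetic nerves to release noradrenaline onto brown adipocytes, adrenergic receptors raise cyclic AMP through adenylyl cyclases, and lipid droplets are broken down to fatty acids. Those fatty acids both activate and feed uncoupling protein 1 (UCP1), which lets protons return across the inner mitochondrial membrane without making ATP. At 30 °C a mouse needs little extra heat and the tissue is comparatively idle. During days of cold the tissue also takes up glucose and lipoprotein fat and makes new fat to refill what it burns.

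Library totals ran from 29253388 to 56243016 counts. The level of a gene is given below in CPM, its count relative to the library total scaled by TMM (trimmed mean of M-values), in the order of libraries 1, 2 and 3 of each group. The cold and thermoneutral libraries numbered 3 stood apart. The 13 genes encoded in mitochondrial DNA took 53.8% of the counts of cold library 3 and 20.0% to 24.4% of the other cold libraries. They took 17.6% of thermoneutral library 3 and 34.8% to 37.7% of the other thermoneutral libraries. Ribosomal protein genes took 0.336% of cold library 3 and 1.01% to 1.83% of the rest. Genes rich in G and C were relatively low in libraries 3, where log2 CPM changed by −0.54 in the cold and −0.21 at thermoneutrality per 10 percentage points of GC content, against 0.04 to 0.49 in the others. No 2 libraries were duplicates. Ranges of counts below give the lowest and highest number of members called with 1 library left out, and then the number without both libraries numbered 3. The words without a library numbered 1 or 2 mean that each of those 4 libraries, left out alone, gave the value or range.

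The tissue label was checked against marker genes. The 14 markers of brown adipocytes summed to 27888, 28198 and 25429 CPM in the cold and 6549.5, 7489 and 6448 CPM at thermoneutrality, and all 14 passed the filter on low counts. Of these 14, 6 rose and 0 fell, and the rises ran from 2 (without cold library 2 or thermoneutral library 2) to 8 (without thermoneutral library 3; 11 without both numbered 3). Cidea, a lipid droplet protein that defines brown adipocytes among fat cells, was at 3480.2, 3508 and 2877 CPM in the cold and 3151, 3257 and 2416 CPM at thermoneutrality. The 11 markers of adipocytes of any kind summed to 16766, 16787 and 10456 CPM in the cold and 14478, 15612 and 13708 CPM at thermoneutrality. Skeletal muscle, which lies beside the interscapular pad, was also present. Its 20 markers summed to 6170.4, 8100.5 and 5558 CPM in the cold and 4098, 12832 and 14232 CPM at thermoneutrality, so the highest libraries were thermoneutral 2 and 3. Lymphocyte markers were near 0, at 16.2 to 27.7 CPM in all for 18 genes, and epithelial and liver markers at 0.549 to 5.53 CPM for 11 genes, with 2 of those at 0 counts in every library. Epcam, which defines epithelium, was at 0 counts in all cold libraries, and Alb, albumin, at 0.222, 0.125 and 0.1396 CPM in the cold and 4.23, 0.252 and 0.9198 CPM at thermoneutrality (−3.47 ± 0.98, adjusted p = 0.0546).

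In the cold, brown fat held more transcript of Ucp1, at 16671 to 19072 CPM against 1105 to 2046 CPM, and of many genes that make, activate and store fatty acids, make cholesterol and break down glucose. Bone morphogenetic protein 8b, Bmp8b, went from near 0 to at least 23.2 CPM. Leptin and many immediate early genes, which answer acute stimuli, were lower in the cold. Subunits of complex I and ATP synthase were not called in either direction. Of 14612 genes tested, 996 (6.82%) were higher in the cold and 781 (5.34%) lower at an adjusted p under 0.05 in edgeR's quasi-likelihood test, together 1777 genes (12.2%). A change of at least 2-fold was found in 938 of those higher and 758 of those lower, and one of at least 8-fold in 119 and 88. The levels of the 3 cold libraries lay above all 3 thermoneutral libraries for 2561 genes (17.5%) and below them for 2623 (18%). Over all genes tested the median log2 fold change was −0.04, so list medians below are to be read against −0.04. Upper quartile scaling moved it to −0.204 and gave 774 higher and 1089 lower genes, 41.5% of calls higher in place of 56%. With the spread of all 12 libraries 48.8% of calls were higher. The number of calls depended on single libraries. It was 303 to 362 higher and 146 to 250 lower when any of the 4 libraries numbered 1 or 2 was left out. It was 1378 and 1105 without cold library 3, and 1165 and 1017 without thermoneutral library 3. Leaving out both libraries numbered 3 gave 3265 and 3244.

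A call is named stable below when it passed in the fit of all 6 libraries and, in the same direction, in each of the 6 fits that left out 1 library. Stable calls numbered 253 higher (1.73% of the genes tested) and 112 lower (0.766%), together 365 (2.5%). They were 115 and 44 when only genes with at least 1 CPM in 3 libraries were kept. The plot of change against level shows where they lie. Counts of a gene list are given below beside these shares: a list in which about 6.82% rose and 5.34% fell had the shares of the genes at large. Those shares hold only for the fit of all 6 libraries. Without both libraries numbered 3, 3265 genes were higher and 3244 lower of 14566 tested. List counts of that fit are to be read against these numbers, and those with 1 library left out against their own fit's calls. In these bulk samples, fewer cells of a type and less RNA per cell cannot be told apart.

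**Figure D1:**
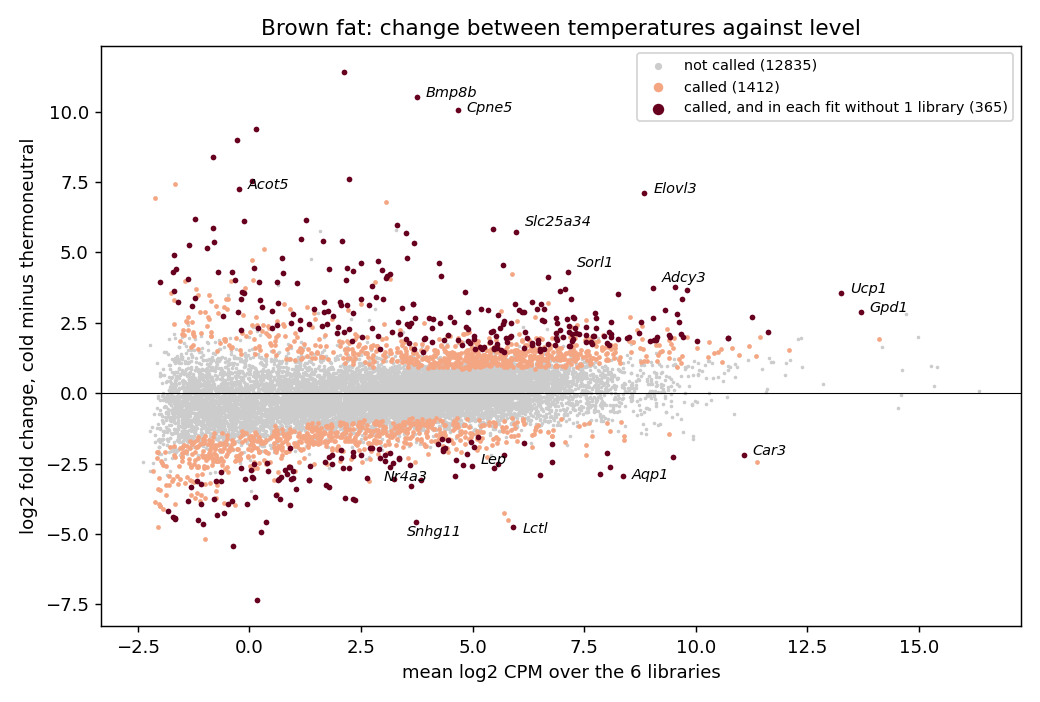
Log2 fold change (cold minus thermoneutral) against mean log2 CPM of 6 brown fat libraries, 1 point per gene for 14612 genes; orange points passed adjusted p 0.05, dark points also passed in each fit without 1 library. The 365 dark points spread over all levels, with Ucp1 and Gpd1 near the right end and Bmp8b and Cpne5 among the largest rises.

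**Figure D2:**
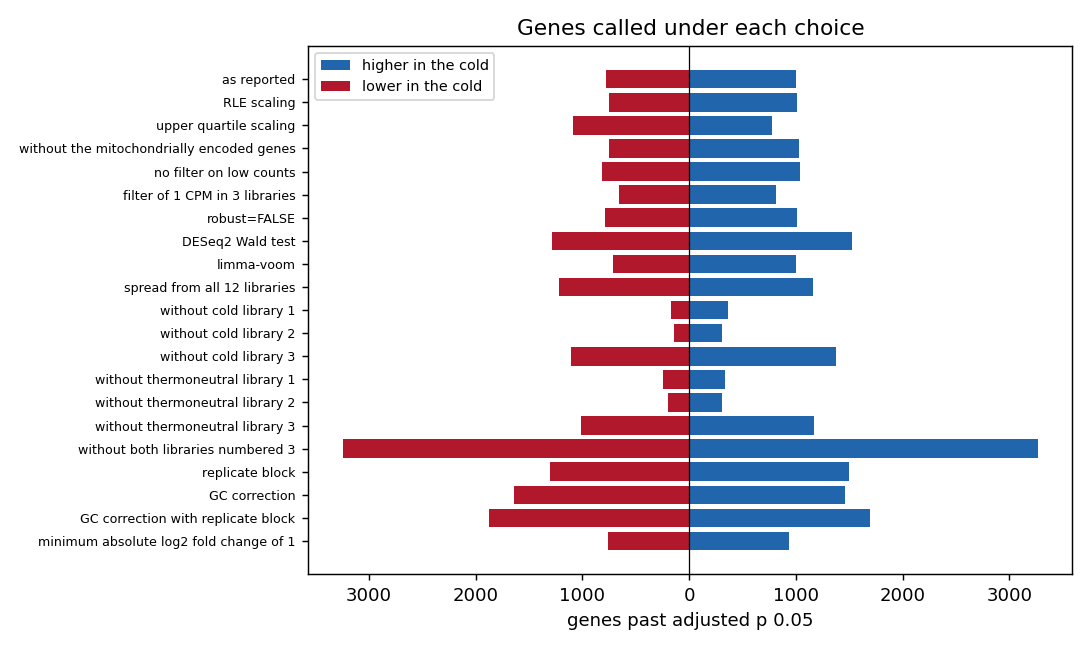
Genes past adjusted p 0.05, higher to the right and lower to the left, for the fit reported and each alternative. Bars shrink to 303 to 362 higher genes when any of the libraries numbered 1 or 2 is left out, and reach 3265 without both libraries numbered 3.

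Among genes whose mean log2 CPM was 3 or more, the 10 largest rises and 10 largest falls that were stable without overlap between groups are described first. Bmp8b (ENSMUSG00000002384.2, chromosome 4, 123105165 to 123132099, mm10), a bone morphogenetic protein secreted by brown fat, had 23.9, 33.5 and 23.2 CPM in the cold and 2 counts in all at thermoneutrality, where libraries 1, 2 and 3 held 1, 0 and 1 counts. All 3 cold libraries were thus far above a group at background, and the ratio was 1812 with a 95% interval for counting error of 501 to 14970. Cpne5 (ENSMUSG00000024008.16, chromosome 17, 29155556 to 29238167), a copine that binds phospholipids in the presence of calcium, had 50.5, 61.9 and 40.2 CPM in the cold against 0, 0 and 6 counts, a ratio of 1133 (520 to 3089). For both genes the cold libraries lay within a factor that is small beside the distance to thermoneutrality.

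Elovl3 (ENSMUSG00000038754.5, chromosome 19, 46131897 to 46135694), which lengthens saturated fatty acids, had 869, 905 and 966 CPM in the cold and 6.77, 5.12 and 8.07 CPM at thermoneutrality. Its level was nearly flat within each group, and it rose by 7.099 ± 0.36 (adjusted p = 0.000143) on the log2 scale. Sgk2, a kinase related to SGK1, had 19.3, 19.5 and 19.3 CPM in the cold and 0.395, 0.252 and 0.282 CPM at thermoneutrality, nearly flat in the cold, and rose by 5.97 ± 0.33 (adjusted p = 0.000164). The mitochondrial carrier Slc25a34 (ENSMUSG00000040740.7, chromosome 4, 141618824 to 141623821) had 140.4, 138 and 91.3 CPM in the cold and 1.47, 1.83 and 3.59 CPM at thermoneutrality, with cold library 3 the lowest of the cold group and still far above every thermoneutral library, and rose by 5.74 ± 0.45 (adjusted p = 0.000865). Arhgef37, which encodes an exchange factor for small GTPases, rose by 5.68 ± 0.52, and Cend1, a neuronal protein of cell cycle exit, by 5.33 ± 0.37. The pacemaker channel gene Hcn2 had 32.98, 24.3 and 8.96 CPM in the cold and 0.903, 0.892 and 0.582 CPM at thermoneutrality, and rose by 4.802 ± 0.53 (adjusted p = 0.00236). Here cold library 3 was well below the other cold libraries. Dhrs9, a retinol dehydrogenase, rose by 4.54 ± 0.603 and the sorting receptor gene Sorl1 by 4.29 ± 0.32.

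The largest of these falls was that of Lctl (ENSMUSG00000032401.15, chromosome 9, 64117147 to 64138118), a member of the Klotho family, with 5.103, 4.01 and 3.74 CPM in the cold and 145, 129 and 73.6 CPM at thermoneutrality. The cold libraries were alike, thermoneutral library 3 was the lowest of its group, and Lctl fell by 4.76 ± 0.37 (adjusted p = 0.000773). Snhg11, a host gene of small nucleolar RNAs, had 1.26, 0.548 and 1.37 CPM in the cold and 29.98, 24.9 and 21.3 CPM at thermoneutrality and fell by 4.59 ± 0.41 (adjusted p = 0.00117). Aqp1 (ENSMUSG00000004655.5, chromosome 6, 55336432 to 55348555), a water channel of endothelium and red cells, had 79.6, 84.8 and 63.1 CPM in the cold and 1025, 453 and 263 CPM at thermoneutrality, the highest level in thermoneutral library 1, and fell by 2.94 ± 0.500 (adjusted p = 0.01001). Impdh1, which makes guanine nucleotides, had 67.97, 66.4 and 32.6 CPM in the cold and 469, 546 and 206 CPM at thermoneutrality, lowest within each group in library 3, and fell by 2.87 ± 0.46 (adjusted p = 0.00813). The others were Gdap10 (−3.299 ± 0.45), the cadherin gene Cdh23 (−3.08 ± 0.35), Vat1l (−3.04 ± 0.32), the kainate receptor subunit gene Grik5 (−2.94 ± 0.36), the acyl-CoA synthetase gene Acsm3 (−2.92 ± 0.33) and the transcriptional repressor gene Bcl6b (−2.68 ± 0.39).

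**Figure D3:**
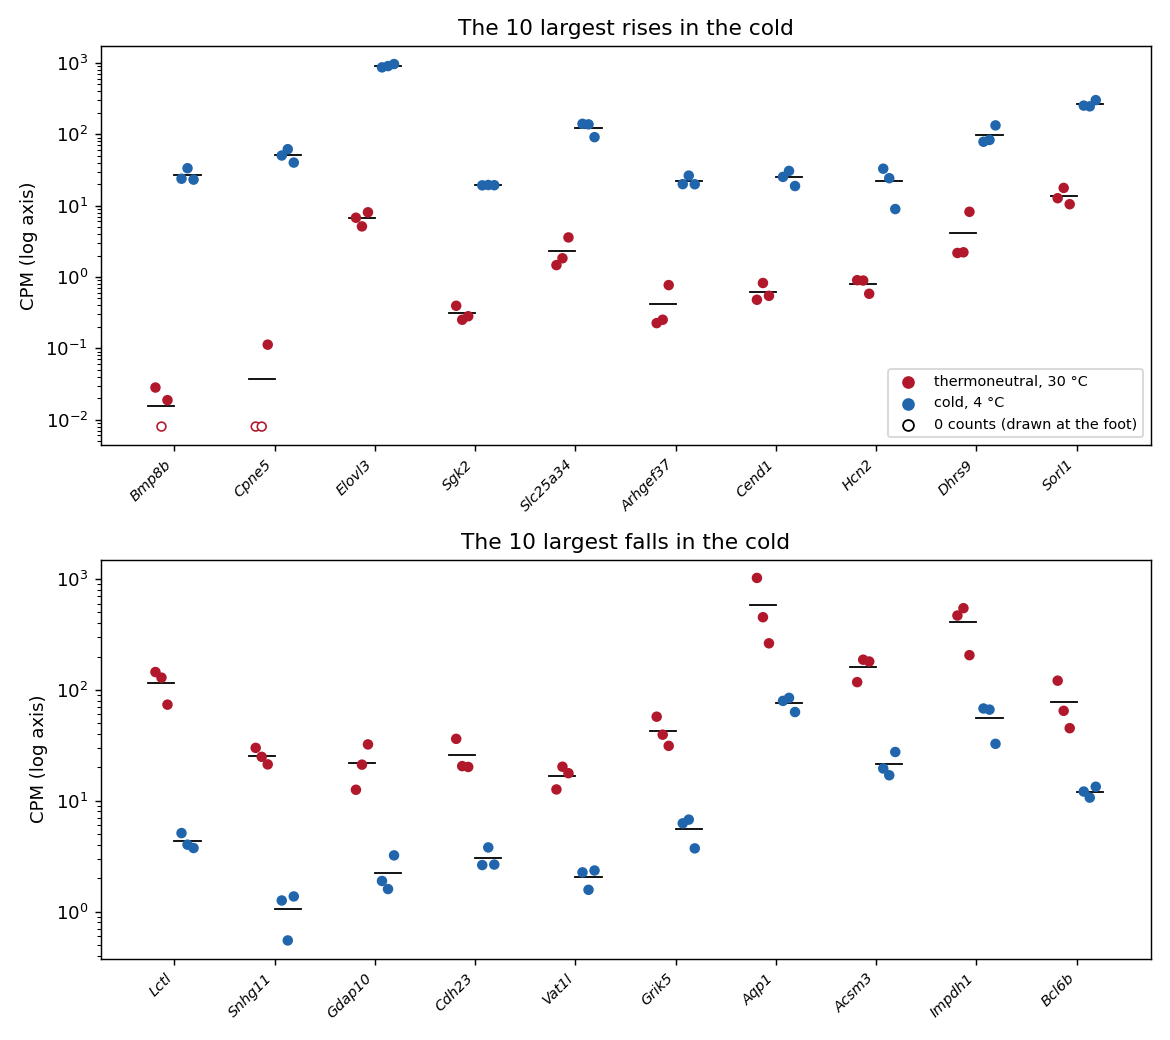
CPM of each library on a log axis for the 10 largest rises and 10 largest falls among stable calls whose mean log2 CPM was 3 or more; points are libraries 1 to 3 from left to right, bars the group mean, open circles 0 counts. Cold (blue) and thermoneutral (red) points do not overlap for any of the 20 genes.

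The stretch before the start of transcription is shown for the gene with the largest rise and for the gene that defines the tissue, because the 2 differ in the short motifs tested. The windows are 250 bases long, 5′ to 3′ on the strand of the gene, from RefSeq on GRCm38.p6 (mm10). Bmp8b is at chr4:123104911-123105160 on the plus strand, and Ucp1 is at chr8:83290098-83290347 on the plus strand. Capitals mark a CCAAT box, here read on the minus strand.
Bmp8b: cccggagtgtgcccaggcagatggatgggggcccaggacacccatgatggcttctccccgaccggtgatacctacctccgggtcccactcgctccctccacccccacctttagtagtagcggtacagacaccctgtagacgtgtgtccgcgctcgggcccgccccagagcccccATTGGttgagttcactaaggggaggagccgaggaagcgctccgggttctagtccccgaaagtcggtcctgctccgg
Ucp1: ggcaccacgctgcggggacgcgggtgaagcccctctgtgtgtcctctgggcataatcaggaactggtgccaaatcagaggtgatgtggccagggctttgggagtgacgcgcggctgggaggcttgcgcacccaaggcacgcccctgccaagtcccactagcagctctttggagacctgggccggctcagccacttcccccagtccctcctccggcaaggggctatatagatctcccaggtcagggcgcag
The Bmp8b window held 1 CCAAT box and the Ucp1 window held none of the 7 motifs searched on both strands, which were the cyclic AMP response element TGACGTCA, its shorter form TGACGT, the estrogen-related receptor element TCAAGGTCA, the CCAAT box, the sterol element TCACCCCAC, the CArG box and the E-box, whose letters are CACGTG. The element TGACGT lies within TGACGTCA, so a match to the longer motif is also one to the shorter. A window without a match says only that these letters are not in it, and known enhancers of Ucp1 lie farther upstream. Of 10852 tested genes with a window, 39.9% held CCAAT, 10.96% TGACGT, 9.61% the E-box and 2.91% the full cyclic AMP response element, counting any window of a gene with several starts, which gives such genes more chance of a match. Among 191 stable higher genes with a window 40.8% held CCAAT and 4.19% TGACGT, and among 76 stable lower genes 31.6% and 6.58%. The estrogen-related receptor element was in 2 of 191, 1 of 76 and 36 of all, too few to compare.

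Signal reception in the cold tissue was mixed. Adrb3, the receptor that drives heat production in rodent brown fat, had 187, 215 and 48.3 CPM in the cold and 100.1, 97.3 and 60.9 CPM at thermoneutrality, with cold library 3 below all thermoneutral libraries, and its log2 fold change of 0.802 ± 0.51 (adjusted p = 0.328) did not pass. It passed when that library was left out (adjusted p = 0.0296 without cold library 3). Adra1a, an alpha-1 receptor that signals through calcium, had 67.3, 64.9 and 62.6 CPM in the cold and 20.5, 28.98 and 29.7 CPM at thermoneutrality and rose by 1.300 ± 0.25 (adjusted p = 0.0156), with an adjusted p of 0.0627 to 0.0728 without a library numbered 1 or 2. Gpr3, a receptor active without a ligand and named here after its values were seen, rose from 0.0564, 0.0457 and 0.225 to 1.07, 1.59 and 0.363 CPM (3.099 ± 0.74, adjusted p = 0.0304; 0.0798 to 0.1204 without a library numbered 1 or 2). Among adrenergic receptors and G proteins, 4 of 20 tested members rose, 1 fell and 15 did not pass. The number that rose ran from 0 (without a library numbered 1 or 2) to 5 (without cold library 3; 8 without both numbered 3).

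Among genes of cyclic AMP, 2 that make it were stable rises. Adcy3 (ENSMUSG00000020654.15, chromosome 12, 4133103 to 4213525), a membrane adenylyl cyclase, had 1049.5, 1157 and 725 CPM in the cold and 75.2, 84.9 and 59.9 CPM at thermoneutrality. All cold libraries were several times above all thermoneutral ones, and Adcy3 rose by 3.74 ± 0.33 (adjusted p = 0.00116). Adcy10, the soluble cyclase that responds to bicarbonate, had 35.9, 31.9 and 43.7 CPM in the cold and 1.55, 1.69 and 2.98 CPM at thermoneutrality and rose by 4.15 ± 0.35 (adjusted p = 0.00116). Pde3b, a phosphodiesterase that lowers cyclic AMP under insulin, had 154, 121 and 319 CPM in the cold and 104, 147 and 97.2 CPM at thermoneutrality, where the groups overlapped, and did not pass (0.77 ± 0.399, adjusted p = 0.238). Of 36 tested cyclases, kinase subunits and phosphodiesterases 5 rose and 0 fell, with a median of 0.3. The number that rose ran from 2 (without thermoneutral library 2) to 6 (without thermoneutral library 3), and was 11 without both libraries numbered 3. In natriuretic peptide signalling, 1 of 7 passed. It was Npr3, the clearance receptor, which had 203, 245 and 341 CPM in the cold and 49.6, 63.3 and 44.02 CPM at thermoneutrality and rose by 2.33 ± 0.31 (adjusted p = 0.00438), while Npr1, the signalling receptor, had 55.02, 59.6 and 41.6 CPM in the cold and 61.8, 42.3 and 39.97 CPM at thermoneutrality (0.12 ± 0.28, adjusted p = 0.815).

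Thyroid hormone and coactivator genes rose in part. Dio2, the enzyme that makes active thyroid hormone inside the tissue, had 197, 251 and 412 CPM in the cold and 45.9, 74.4 and 113 CPM at thermoneutrality and rose by 1.89 ± 0.42 (adjusted p = 0.02405), with an adjusted p of 0.0709 to 0.0991 without cold library 2 or thermoneutral library 1 or 2. Ncoa1, a coactivator of nuclear receptors, had 75.7, 95.1 and 104 CPM in the cold and 16.7, 21.9 and 29.6 CPM at thermoneutrality, no overlap, and rose by 2.01 ± 0.301 (adjusted p = 0.00658), a stable call. Thrb, a thyroid hormone receptor, overlapped between groups at 22.3, 20.5 and 29.3 CPM in the cold and 13.2, 22.9 and 40.1 CPM at thermoneutrality (−0.08 ± 0.395, adjusted p = 0.915). Of 11 tested genes of thyroid hormone action 3 rose, and the number was 1 (without cold library 2 or thermoneutral library 1 or 2) to 4 (without thermoneutral library 3; 5 without both numbered 3) with 1 library left out. Among PGC-1 coactivators and nuclear receptors, 7 of 22 tested members rose, 0 fell and 15 did not pass, with 3 stable and a median of 0.65. That number ran from 3 (without thermoneutral library 1 or 2) to 8 (without cold library 3; 14 without both numbered 3). Ppargc1a, which coactivates genes of mitochondrial biogenesis, had 160.1, 338 and 324 CPM in the cold and 24.1, 42.04 and 86.6 CPM at thermoneutrality and rose by 2.43 ± 0.51 (adjusted p = 0.0202), with an adjusted p of 0.0684 to 0.0938 without cold library 2 or thermoneutral library 1 or 2. Esrrb, an estrogen-related receptor better known from stem cells, had 8.65, 9.22 and 7.45 CPM in the cold and 0.451, 0.297 and 0.7697 CPM at thermoneutrality and rose by 4.04 ± 0.41 (adjusted p = 0.00169). Perm1, a regulator of muscle mitochondria under PGC-1, had 133, 170.1 and 164 CPM in the cold and 10.4, 24.6 and 24.4 CPM at thermoneutrality, lowest in thermoneutral library 1, and rose by 2.98 ± 0.38 (adjusted p = 0.003902). Esrra, the most abundant receptor of that family in oxidative tissue, had 224, 173 and 45 CPM in the cold and 103, 109 and 27.8 CPM at thermoneutrality, with library 3 the lowest of each group, and did not pass (0.88 ± 0.64, adjusted p = 0.392).

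For regulators of brown fat identity, calls depended on the libraries used. Of 24 tested, 1 rose and 0 fell in edgeR (5 higher and 2 lower at an unadjusted p under 0.05, 3 and 1 past DESeq2, 1 and 0 past limma-voom). Among identity regulators the rises ran from 0 (without a library numbered 1 or 2) to 5 (without cold library 3; 9 without both numbered 3). In these regulators the falls ran from 0 (without cold library 1 or 2 or thermoneutral library 1, 2 or 3) to 1 (without cold library 3; 2 without both numbered 3). The member that rose was Zfp423, which restrains the thermogenic programme in white fat, with 15.97, 20.2 and 9.71 CPM in the cold and 5.75, 7.43 and 4.67 CPM at thermoneutrality (1.36 ± 0.34, adjusted p = 0.0371), and it had an adjusted p of 0.0734 to 0.158 without cold library 1 or 2 or thermoneutral library 1, 2 or 3. Prdm16, the coregulator that sets brown identity, had 40.01, 52.6 and 39.1 CPM in the cold and 22.3, 21.7 and 27.3 CPM at thermoneutrality, without overlap, and did not pass (0.89 ± 0.25, adjusted p = 0.0542), although it did with 0.0392 and 0.04498 without cold library 3 or thermoneutral library 3. Ebf2, a transcription factor of brown preadipocytes, was at 31.4, 29.6 and 54.6 CPM in the cold and 29.8, 38.3 and 31.4 CPM at thermoneutrality, overlapping (0.21 ± 0.304). Of 14 lipogenic and sterol regulators 3 rose, ranging from 0 (without cold library 2 or thermoneutral library 1) to 6 (without cold library 3; 10 without both numbered 3), and their median was 0.86. Klb, the coreceptor for FGF21, had 29.7, 30.9 and 28.7 CPM in the cold and 6.97, 7.84 and 12.95 CPM at thermoneutrality and rose by 1.68 ± 0.300 (adjusted p = 0.0116), with an adjusted p of 0.0547 to 0.0634 without cold library 2 or thermoneutral library 1 or 2. Its ligand Fgf21 had 2.74, 2.32 and 0.782 CPM in the cold and 0.0564, 0.274 and 0.0188 CPM at thermoneutrality and rose by 4.04 ± 0.82 (adjusted p = 0.0182), with an adjusted p of 0.0556 to 0.0835 without cold library 1 or 2 or thermoneutral library 1. Neither Srebf1, a master factor of fat synthesis (0.62 ± 0.501, adjusted p = 0.439), nor Mlxipl, the carbohydrate response factor (0.96 ± 0.36, adjusted p = 0.119), passed.

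Of the genes of fatty acid uptake from the blood 23.1% rose, against 6.82% of all genes tested, though most were not called. Among genes of lipoprotein lipase and fatty acid uptake, 6 of 26 tested members rose, 0 fell and 20 did not pass, with a median of 0.78. The count that rose ran from 2 (without cold library 2) to 9 (without cold library 3; 13 without both numbered 3). Sorl1 (ENSMUSG00000049313.8, chromosome 9, 41964720 to 42124297), a sorting receptor of endosomes and the cell surface, had 253, 247 and 301 CPM in the cold and 12.7, 17.7 and 10.5 CPM at thermoneutrality. The groups lay more than a factor of 10 apart, and it rose by 4.29 ± 0.32 (adjusted p = 0.000727). Lpl, the lipase that frees fatty acids at the vessel wall, had 4231, 4053 and 5106 CPM in the cold and 2226, 2470.2 and 974 CPM at thermoneutrality, without overlap, and did not pass (1.24 ± 0.396, adjusted p = 0.0773). Cd36, a fatty acid transporter, had 1175, 939 and 2147 CPM in the cold and 796, 811 and 889 CPM at thermoneutrality (0.77 ± 0.35, adjusted p = 0.1896).

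Genes that attach fatty acids to coenzyme A or release them were among the lists with the highest share of calls. Of 26 tested, 13 (50%) rose, 2 fell and 11 did not pass, with a median of 1.31; 7 rises and 1 fall were stable. The number that rose ran from 7 (without cold library 1 or 2 or thermoneutral library 1) to 13 (without cold library 3 or thermoneutral library 3; 17 without both numbered 3). Acsl5 (ENSMUSG00000024981.6, chromosome 19, 55251938 to 55297720), a long-chain acyl-CoA synthetase, had 1524, 1385 and 2039 CPM in the cold and 84.9, 118 and 184 CPM at thermoneutrality. Thermoneutral library 3 was the highest of its group and still about a factor of 7 below the lowest cold library, and Acsl5 rose by 3.68 ± 0.39 (adjusted p = 0.0019000). Acot11, a thioesterase also known as brown-fat-inducible thioesterase, had 1327, 1399 and 1409.9 CPM in the cold and 76.6, 112 and 112 CPM at thermoneutrality, with the cold libraries almost equal, and rose by 3.78 ± 0.31 (adjusted p = 0.000928). The peroxisomal thioesterase gene Acot5 had 1.41, 2.29 and 1.17 CPM in the cold and 0, 1 and 0 counts at thermoneutrality, a ratio of 221 (39.2 to 8785). Acsl1, the main long-chain synthetase of fat cells, had 2471, 2738 and 2969 CPM in the cold and 597, 954 and 1147 CPM at thermoneutrality and rose by 1.600 ± 0.33 (adjusted p = 0.0187), with an adjusted p of 0.0607 to 0.0838 without a library numbered 1 or 2. The members that fell were both medium-chain synthetases: Acsm3, with 19.5, 16.96 and 27.5 CPM in the cold and 118, 187 and 180.4 CPM at thermoneutrality and a fall of 2.92 ± 0.33 (adjusted p = 0.00236), and Acsm5, at −1.44 ± 0.39 (adjusted p = 0.0465; 0.135 to 0.174 without a library numbered 1 or 2), named after its values were seen. Acot5 is one of a cluster of closely similar thioesterase genes, so reads may be split among them.

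Lipid droplet proteins and lipases rose in 6 of 25 cases and fell in 2, with a median of 0.73. All 4 stable members rose. Plin2, a coat protein of growing droplets, had 1449.6, 1395 and 1149 CPM in the cold and 335, 291 and 301 CPM at thermoneutrality and rose by 2.11 ± 0.27 (adjusted p = 0.00385). Mgll, which removes the last fatty acid from glycerol, had 1121, 1138 and 1052 CPM in the cold and 306, 303 and 228 CPM at thermoneutrality and rose by 1.99 ± 0.27 (adjusted p = 0.00469). Abhd5, the coactivator of adipose triglyceride lipase, had 144, 133 and 154 CPM in the cold and 44.5, 50.9 and 49.95 CPM at thermoneutrality and rose by 1.57 ± 0.24 (adjusted p = 0.00716). In none of these did the groups overlap. Lipa, the lipase of lysosomes, had 191, 175 and 332 CPM in the cold and 38.9, 54.2 and 60.99 CPM at thermoneutrality, highest in cold library 3, and rose by 2.18 ± 0.35 (adjusted p = 0.00799). Pnpla2, adipose triglyceride lipase itself, had 3995, 4769.5 and 2301 CPM in the cold and 1866, 2527 and 1729 CPM at thermoneutrality, where the groups overlapped, and did not pass (0.85 ± 0.36, adjusted p = 0.157). Plin5, a droplet protein that contacts mitochondria, did not pass either (0.49 ± 0.55, adjusted p = 0.589). The members that fell, Hilpda, an inhibitor of that lipase (−1.76 ± 0.46; adjusted p = 0.0648 to 0.146 without cold library 1, 2 or 3 or thermoneutral library 1 or 2), and the carboxylesterase gene Ces1f (−1.03 ± 0.28; adjusted p = 0.0605 to 0.153 without cold library 1, 2 or 3 or thermoneutral library 1, 2 or 3), were named after their values were seen. The list count of rises ran from 4 (without a library numbered 1 or 2) to 12 (without cold library 3; 15 without both numbered 3).

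Genes that build triglyceride from glycerol rose in 8 of 22 cases and fell in 0, with a median of 0.8 and 3 stable. Gpd1 (ENSMUSG00000023019.12, chromosome 15, 99717515 to 99725005), which makes glycerol 3-phosphate from a glycolytic intermediate, had 22729, 26392 and 21174 CPM in the cold and 2455, 3714 and 3233 CPM at thermoneutrality. All cold libraries were above all thermoneutral ones, and it rose by 2.902 ± 0.35 (adjusted p = 0.00314). Gk (ENSMUSG00000025059.16, chromosome X, 85701937 to 85776819), glycerol kinase, which reuses the glycerol set free by lipolysis, had 216, 158 and 436 CPM in the cold and 23.4, 28.3 and 27.7 CPM at thermoneutrality. Cold library 3 was the highest, and Gk rose by 3.35 ± 0.42 (adjusted p = 0.003596). Lpin1, a phosphatidate phosphatase, had 873, 986 and 832 CPM in the cold and 164, 251 and 259 CPM at thermoneutrality and rose by 1.997 ± 0.296 (adjusted p = 0.00634). Dgat2, which completes triglyceride, had 720.1, 640.0 and 306 CPM in the cold and 1082, 1402 and 699 CPM at thermoneutrality, with overlap, and did not pass (−0.93 ± 0.41, adjusted p = 0.166). Rises in the list ran from 3 (without cold library 2) to 9 (without cold library 3; 14 without both numbered 3).

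Fatty acid synthesis, elongation and desaturation had the highest share of members that rose of the 55 lists of pathways. Of 28 tested, 15 (53.6%) rose, 0 fell and 13 did not pass, with a median of 1.29 and 7 stable. The number was 8 (without cold library 1 or thermoneutral library 1 or 2) to 17 (without cold library 3), and 21 without both libraries numbered 3. Acly (ENSMUSG00000020917.17, chromosome 11, 100476353 to 100528000), which makes cytosolic acetyl-CoA from citrate, had 4681, 4066 and 4013 CPM in the cold and 485, 796 and 663 CPM at thermoneutrality. The cold libraries were alike, the thermoneutral ones lower by a factor of at least 5, and Acly rose by 2.71 ± 0.32 (adjusted p = 0.00301). Hacd2, a dehydratase of the elongation cycle, had 347, 369.9 and 412 CPM in the cold and 45.8, 53.9 and 55.6 CPM at thermoneutrality and rose by 2.86 ± 0.27 (adjusted p = 0.00118). Elovl6, which extends palmitate to stearate, had 1600.3, 1392 and 1923 CPM in the cold and 411, 394 and 556 CPM at thermoneutrality and rose by 1.85 ± 0.296 (adjusted p = 0.00797). Elovl4, an elongase of very long chains, rose from 0.0564, 0.183 and 0.1502 to 2.26, 1.57 and 2.54 CPM (3.96 ± 0.48, adjusted p = 0.00314). Fasn, fatty acid synthase, had 32161, 34070.0 and 17255 CPM in the cold and 7016, 8661 and 6055 CPM at thermoneutrality, with cold library 3 the lowest of the cold group, and rose by 1.94 ± 0.396 (adjusted p = 0.0179), with an adjusted p of 0.0634 to 0.0935 without a library numbered 1 or 2.

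Transcripts of cholesterol synthesis rose in 10 of 22 tested members (45.5%) and fell in 1, with a median of 0.94. The number that rose ran from 6 (without cold library 1) to 10 (without cold library 3 or thermoneutral library 3; 12 without both numbered 3), and 6 rises were stable. Sqle, squalene epoxidase, had 22.7, 18.2 and 21.8 CPM in the cold and 3.89, 4.35 and 2.93 CPM at thermoneutrality and rose by 2.49 ± 0.28 (adjusted p = 0.00236). Sc5d, a sterol desaturase, had 201, 187 and 240.4 CPM in the cold and 38.3, 52.3 and 66.5 CPM at thermoneutrality and rose by 1.999 ± 0.298 (adjusted p = 0.00646). Neither overlapped between groups. Hsd17b7, a sterol ketoreductase, rose by 2.52 ± 0.38 (adjusted p = 0.00698). The member that fell was Fdft1, squalene synthase, named after its values were seen, with 50.7, 53.96 and 42.5 CPM in the cold and 127, 189 and 202 CPM at thermoneutrality. Every cold library was below every thermoneutral one, and it fell by 1.82 ± 0.28 (adjusted p = 0.0076000), a stable call, so that neighbouring enzymes of the pathway, Fdft1 and Sqle, went in opposite directions.

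Windows before the starts of cholesterol genes that rose are shown because each of the 6 found in the RefSeq table held a CCAAT box, against 39.9% of all tested genes with a window. They are Nsdhl (chrX:72918271-72918520, plus strand), Sc5d (chr9:42264301-42264550, minus strand) and Hmgcs1 (chr13:119690101-119690350, plus strand), with CCAAT on either strand in capitals.
Nsdhl: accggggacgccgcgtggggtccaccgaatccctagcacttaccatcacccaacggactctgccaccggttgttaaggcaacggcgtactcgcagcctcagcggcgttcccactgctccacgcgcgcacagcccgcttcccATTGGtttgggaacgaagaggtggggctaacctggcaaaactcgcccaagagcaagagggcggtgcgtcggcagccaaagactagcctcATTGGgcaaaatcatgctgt
Sc5d: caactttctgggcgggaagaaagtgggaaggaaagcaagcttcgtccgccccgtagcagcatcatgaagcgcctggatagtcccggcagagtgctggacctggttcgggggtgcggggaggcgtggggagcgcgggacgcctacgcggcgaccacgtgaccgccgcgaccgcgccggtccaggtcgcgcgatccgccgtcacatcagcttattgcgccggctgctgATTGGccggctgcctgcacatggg
Hmgcs1: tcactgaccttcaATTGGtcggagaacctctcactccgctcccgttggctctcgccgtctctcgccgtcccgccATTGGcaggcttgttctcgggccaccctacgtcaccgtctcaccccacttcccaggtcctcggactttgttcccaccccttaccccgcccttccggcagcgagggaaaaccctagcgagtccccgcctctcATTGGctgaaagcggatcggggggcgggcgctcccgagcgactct
Nsdhl held 2, Sc5d 1 and Hmgcs1 3 such boxes. Nsdhl, a sterol dehydrogenase, had 58.8, 60.4 and 80.4 CPM in the cold and 21.9, 23.4 and 22.6 CPM at thermoneutrality (1.56 ± 0.25, adjusted p = 0.00796), and Hmgcs1, which makes HMG-CoA, 225, 198 and 339 CPM in the cold and 75.4, 97.1 and 93.6 CPM at thermoneutrality (1.52 ± 0.301, adjusted p = 0.0162), both named here for their windows after their values were seen. The sterol element TCACCCCAC was found in 1 of the 6 genes, Hmgcs1, and in 0.63% of all. These matches are a description of letters, not of sites in use.

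Transcripts of fatty acid oxidation in mitochondria rose in 8 of 31 tested members and fell in 0, with a median of 0.54. The number ran from 3 (without cold library 2 or thermoneutral library 2) to 9 (without thermoneutral library 3; 14 without both numbered 3). Hadha, of the trifunctional protein, had 2659.8, 2577 and 2833 CPM in the cold and 516, 843 and 695 CPM at thermoneutrality and rose by 1.97 ± 0.305 (adjusted p = 0.00722). Cpt2, of the carnitine shuttle, had 946, 938 and 701 CPM in the cold and 235, 294 and 173 CPM at thermoneutrality and rose by 1.88 ± 0.31 (adjusted p = 0.00878). Bdh1, which converts ketone bodies, had 12.8, 13.2 and 6.81 CPM in the cold and 0.113, 0.846 and 0.338 CPM at thermoneutrality and rose by 4.63 ± 0.65 (adjusted p = 0.00509). All 3 were stable and their groups did not overlap. Cpt1b, the muscle and brown fat form of the shuttle's first enzyme, had 1099, 1174 and 1008 CPM in the cold and 522, 518 and 387 CPM at thermoneutrality and rose by 1.201 ± 0.27 (adjusted p = 0.02501), with an adjusted p of 0.06705 to 0.125 without a library numbered 1 or 2. Acadm, a medium-chain dehydrogenase, overlapped between groups at 1394, 1459 and 2296 CPM in the cold and 527, 931 and 2026 CPM at thermoneutrality (0.56 ± 0.49, adjusted p = 0.474). Of 42 peroxisomal genes 8 rose and 0 fell, from 2 (without a library numbered 1 or 2) to 13 (without cold library 3; 21 without both numbered 3) with single libraries left out. Acox2, a peroxisomal oxidase, rose from 1.13, 1.12 and 0.695 to 5.14, 4.66 and 5.44 CPM (2.37 ± 0.33, adjusted p = 0.00469), and Ehhadh, the bifunctional enzyme, from 45.9, 43.5 and 47.7 to 141, 125 and 141 CPM (1.57 ± 0.24, adjusted p = 0.00671). Pex11a, which promotes division of peroxisomes, did not pass (0.89 ± 0.26, adjusted p = 0.0565).

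In glycolysis, genes of the first and of the last step were among those that rose. Of 32 tested members 11 rose, 1 fell and 20 did not pass, with a median of 0.9 and 6 stable rises. The number that rose ran from 6 (without cold library 1 or 2 or thermoneutral library 1) to 13 (without cold library 3; 18 without both numbered 3). Hk2, the insulin-responsive hexokinase, had 917, 974 and 644 CPM in the cold and 184, 242 and 259.6 CPM at thermoneutrality and rose by 1.89 ± 0.301 (adjusted p = 0.00788). Pfkp (ENSMUSG00000021196.14, chromosome 13, 6579768 to 6648777), a phosphofructokinase, had 272, 253 and 274 CPM in the cold and 35.9, 38.2 and 50.1 CPM at thermoneutrality, nearly flat in the cold, and rose by 2.69 ± 0.27 (adjusted p = 0.00159). Pkm, pyruvate kinase, had 5743, 5991 and 3779 CPM in the cold and 1030.2, 1444 and 932 CPM at thermoneutrality and rose by 2.19 ± 0.35 (adjusted p = 0.00783). None of these overlapped between groups. Hk1 rose by 2.505 ± 0.303 (adjusted p = 0.00314) and Gpi1, which converts glucose 6-phosphate to fructose 6-phosphate, by 1.97 ± 0.28 (adjusted p = 0.00533). Slc2a4, the insulin-regulated glucose transporter, had 683, 665 and 506 CPM in the cold and 325, 396 and 196 CPM at thermoneutrality, without overlap, and did not pass (1.02 ± 0.33, adjusted p = 0.0805). The member that fell was Aldoc, an aldolase of the brain, named after its values were seen (−2.19 ± 0.36, adjusted p = 0.00868; 0.0527 without cold library 2).

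Glycogen and pentose phosphate genes rose in 9 of 33 cases, and the count was 3 (without cold library 2 or thermoneutral library 2) to 10 (without cold library 3; 14 without both numbered 3). Pgd, which makes NADPH in the pentose phosphate pathway, had 1273, 1191 and 1553 CPM in the cold and 162, 206 and 207 CPM at thermoneutrality and rose by 2.802 ± 0.29 (adjusted p = 0.00169). Pygl, a glycogen phosphorylase, had 1559, 1489.5 and 981 CPM in the cold and 253, 355 and 395 CPM at thermoneutrality and rose by 2.01 ± 0.32 (adjusted p = 0.00813). Both were stable. Gys2, glycogen synthase of liver and fat, had 118, 142 and 177 CPM in the cold and 9.39, 11.6 and 46.4 CPM at thermoneutrality (2.69 ± 0.604), and its adjusted p was 0.05201 to 0.0959 without a library numbered 1 or 2. G6pdx, which opens the pentose phosphate pathway, rose by 1.62 ± 0.29 (adjusted p = 0.0116), with an adjusted p of 0.0599 to 0.0603 without cold library 2 or thermoneutral library 2. Of 25 genes of pyruvate and lactate 8 rose and 1 fell, but the rises ran from 0 (without a library numbered 1 or 2) to 8 (without cold library 3; 18 without both numbered 3), so none was stable. The stable member fell: Slc16a7, a carrier of pyruvate and lactate, had 2.51, 1.97 and 3.99 CPM in the cold and 13.2, 22.6 and 11.1 CPM at thermoneutrality (−2.47 ± 0.401, adjusted p = 0.00842). Its relative Slc16a1 rose by 1.34 ± 0.27 (adjusted p = 0.0162), with an adjusted p of 0.0525 to 0.0806 without a library numbered 1 or 2. Pdk4, which switches off pyruvate dehydrogenase, had 1455, 1612 and 2062 CPM in the cold and 575, 1013 and 717 CPM at thermoneutrality (1.15 ± 0.32, adjusted p = 0.0503), and Ldhb overlapped between groups (1.06 ± 0.47, adjusted p = 0.174).

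**Figure D4:**
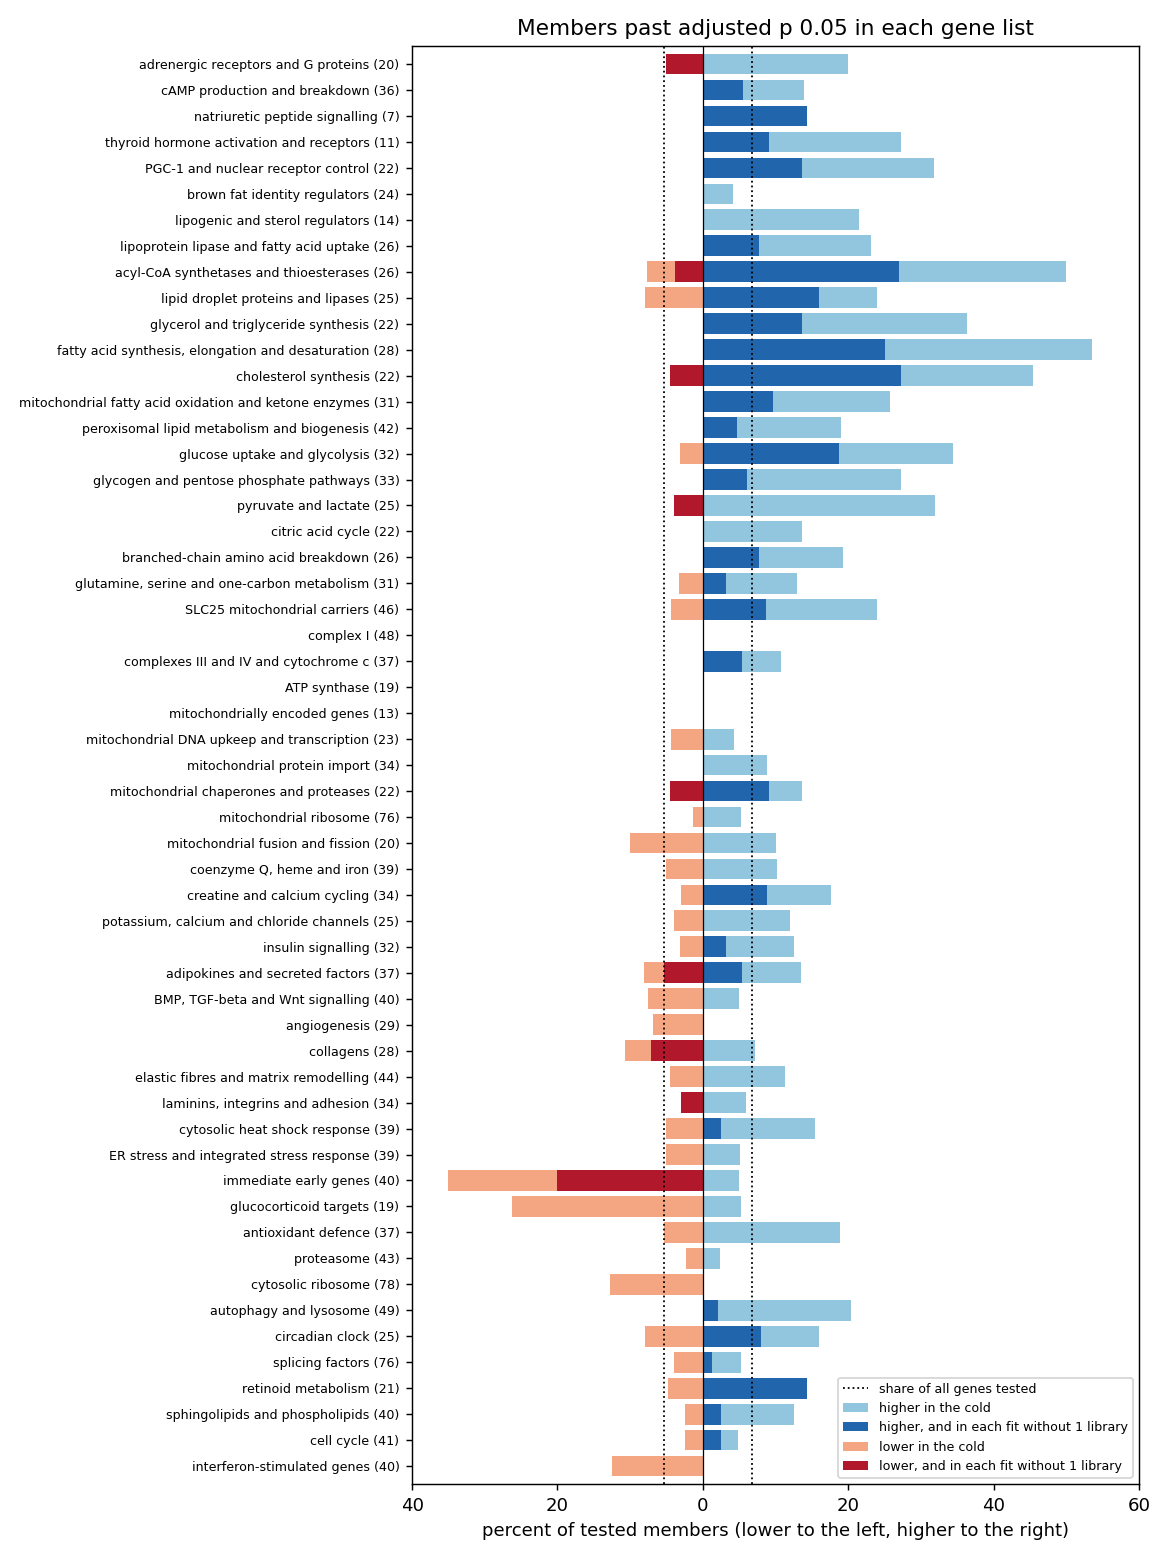
Percent of tested members of 55 gene lists past adjusted p 0.05, higher in the cold to the right and lower to the left, with stable calls in the darker shade and the number tested in brackets; dotted lines mark the 6.82% and 5.34% of all genes. Lipid, sterol and sugar lists extend farthest right, immediate early genes farthest left, and complex I, ATP synthase and the mitochondrially encoded genes have no bar.

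Transcripts of the citric acid cycle rose in 3 of 22 tested members and fell in 0, with a median of 0.67. Ogdh, of the oxoglutarate dehydrogenase complex, had 4273, 4988 and 4199.7 CPM in the cold and 912, 1534 and 907 CPM at thermoneutrality and rose by 2.005 ± 0.34 (adjusted p = 0.00929), passing in every fit but one (adjusted p = 0.0518 without cold library 2). Dlst, of the same complex, rose by 1.43 ± 0.28 (adjusted p = 0.0149), with an adjusted p of 0.0507 to 0.0796 without a library numbered 1 or 2. Cs, citrate synthase, had 2137, 2110.3 and 2425 CPM in the cold and 1067, 1612 and 749.96 CPM at thermoneutrality, without overlap, and did not pass (0.96 ± 0.34, adjusted p = 0.102). The count was 0 (without cold library 2) to 4 (without cold library 3; 13 without both numbered 3). In breakdown of branched-chain amino acids 5 of 26 rose, ranging from 2 (without thermoneutral library 2) to 6 (without cold library 3; 9 without both numbered 3). Slc3a2, the heavy chain of amino acid transporters, had 199, 248 and 163 CPM in the cold and 47.4, 38.1 and 44.6 CPM at thermoneutrality and rose by 2.23 ± 0.28 (adjusted p = 0.00352), and Pcca, of propionyl-CoA carboxylase, had 315, 279 and 347 CPM in the cold and 65.1, 116 and 96.4 CPM at thermoneutrality and rose by 1.76 ± 0.303 (adjusted p = 0.0103). The first enzymes of that pathway, Bcat2 (0.34 ± 0.39) and Bckdha (0.19 ± 0.58), overlapped between groups. Got1, an aspartate aminotransferase, had 114, 122 and 113 CPM in the cold and 8.8003, 18.3 and 18.1 CPM at thermoneutrality and rose by 2.95 ± 0.34 (adjusted p = 0.00281), the stable member among 31 genes of glutamine, serine and one-carbon metabolism, of which 4 rose and 1 fell. Rises in that list ran from 1 (without cold library 1 or 2 or thermoneutral library 2) to 5 (without cold library 3; 10 without both numbered 3). Phgdh, which opens serine synthesis, and Mthfd2, of mitochondrial one-carbon metabolism, did not pass (−1.27 ± 0.49 and 0.803 ± 0.34, adjusted p = 0.125 and 0.152). Glul, glutamine synthetase, rose by 1.68 ± 0.31 (adjusted p = 0.0135), with an adjusted p of 0.0541 to 0.0686 without cold library 1 or 2 or thermoneutral library 2.

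Carriers of the inner mitochondrial membrane rose in 11 of 46 cases and fell in 2, with a median of 0.49. Ucp1 (ENSMUSG00000031710.4, chromosome 8, 83290352 to 83298452), whose role is given above, had 19072, 18628 and 16671 CPM in the cold and 1105, 1469 and 2046 CPM at thermoneutrality. The cold libraries were within a narrow band, all far above the thermoneutral ones, and Ucp1 rose by 3.56 ± 0.38 (adjusted p = 0.0019000). Slc25a17, a peroxisomal carrier of cofactors, had 114, 104 and 136 CPM in the cold and 27.3, 30.7 and 20.6 CPM at thermoneutrality (2.17 ± 0.28, adjusted p = 0.003596), and Slc25a48 had 60.4, 55.9 and 39.8 CPM in the cold and 12.9, 16.3 and 11.8 CPM at thermoneutrality (1.93 ± 0.28, adjusted p = 0.00566). With Slc25a34, these were the stable members. Slc25a20, the carnitine carrier, had 976, 952 and 504 CPM in the cold and 189.5, 283 and 437 CPM at thermoneutrality, without overlap, and did not pass (1.42 ± 0.403, adjusted p = 0.0544). Ucp3, named after its values were seen, rose by 1.09 ± 0.26 (adjusted p = 0.0297), with an adjusted p of 0.0982 to 0.136 without a library numbered 1 or 2. Those that fell were the glutamate carrier Slc25a18 (0, 1 and 1 counts in the cold against 13, 18 and 16; adjusted p = 0.0502 without cold library 2) and the ATP-magnesium carrier Slc25a25 (−1.94 ± 0.35; adjusted p = 0.0517 to 0.0596 without cold library 1 or thermoneutral library 1 or 2), also named afterwards. Rises among carriers ran from 4 (without thermoneutral library 1) to 14 (without cold library 3; 21 without both numbered 3).

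Subunits of the respiratory chain were mostly not called. Of 48 tested complex I genes, 0 passed in edgeR, with 2 higher and 1 lower at an unadjusted p under 0.05, 1 and 0 past DESeq2, 0 and 0 past limma-voom. The median was −0.01, and −0.18 to 0.01 under the other scalings. Ndufs1 had 423, 347 and 479 CPM in the cold and 222, 358 and 444 CPM at thermoneutrality (0.29 ± 0.32), and Ndufv1 418, 376 and 257 CPM in the cold and 444, 483 and 304 CPM at thermoneutrality (−0.23 ± 0.31), both with overlap. Of 19 ATP synthase genes 0 passed in edgeR, with 3 higher and 3 lower at an unadjusted p under 0.05, 3 and 0 past DESeq2 and 0 and 0 past limma-voom. Atp5g1, a subunit of the proton ring held low in brown fat, had 13.3, 17.8 and 8.24 CPM in the cold and 20.3, 35.4 and 9.35 CPM at thermoneutrality (−0.73 ± 0.48), and Atpif1, the inhibitor of the enzyme, had 11.02, 11.9 and 5.08 CPM in the cold and 15.6, 13.7 and 22.9 CPM at thermoneutrality (−0.897 ± 0.38, adjusted p = 0.154). These lists had 11 higher and 5 lower, and 5 higher and 4 lower, without both libraries numbered 3. In that fit 3265 of all 14566 genes tested were higher and 3244 lower. In complexes III and IV 4 of 37 rose. The stable ones, Cox10 (94.2, 101 and 60.2 CPM in the cold and 20.3, 27.2 and 18.5 CPM at thermoneutrality; 1.96 ± 0.304, adjusted p = 0.00753) and Cox15 (57.6, 55.3 and 60.5 CPM in the cold and 14.4, 22.9 and 18.9 CPM at thermoneutrality; 1.63 ± 0.26, adjusted p = 0.00813), make heme A for complex IV and are not subunits. Cox7a1 (0.52 ± 0.27) and Cox8b (−0.44 ± 0.55), subunit forms of brown fat and muscle, did not pass (adjusted p = 0.231 and 0.628). Rises there ran from 2 (without a library numbered 1 or 2) to 4 (without cold library 3; 12 without both numbered 3).

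Transcripts of mitochondrial DNA varied widely within groups. Of 13 tested, 0 passed in edgeR, 3 were higher and 0 lower at an unadjusted p under 0.05, 3 passed DESeq2 and 0 limma-voom. mt-Nd1, of complex I, had 31740.0, 22764 and 99122 CPM in the cold and 11773, 18038 and 8919 CPM at thermoneutrality, and mt-Co1, of complex IV, 58591, 49216 and 148960.0 CPM in the cold and 97737, 123610.0 and 19793 CPM at thermoneutrality. For both, cold library 3 was highest and thermoneutral library 3 lowest. Without both libraries numbered 3, 4 rose, 3 fell and the median went from 0.98 to −0.35. There mt-Nd1 rose and mt-Co1 went from 0.09 ± 0.700 to −1.04 ± 0.26 (adjusted p = 0.00775).

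Genes that maintain and build mitochondria were near the background in the fit of all 6 libraries. Of 23 genes of mitochondrial DNA upkeep 1 rose, Twnk, the helicase (1.11 ± 0.28; adjusted p = 0.114 to 0.1505 without a library numbered 1 or 2), and 1 fell, Tk2, a nucleoside kinase (−1.12 ± 0.28; adjusted p = 0.109 to 0.137 without a library numbered 1 or 2). Tfam (0.23 ± 0.299) and Polg (0.11 ± 0.31), the packaging factor and polymerase of that DNA, overlapped between groups. Among DNA upkeep genes the rises ran from 0 (without a library numbered 1 or 2) to 2 (without cold library 3 or thermoneutral library 3; 6 without both numbered 3). In this list the falls ran from 0 (without a library numbered 1 or 2) to 1 (without cold library 3 or thermoneutral library 3; 4 without both numbered 3). In protein import 3 of 34 rose and ran from 0 (without cold library 1 or 2 or thermoneutral library 1, 2 or 3) to 7 (without cold library 3; 13 without both numbered 3), among them Mtx1 (1.004 ± 0.25; adjusted p = 0.0547 to 0.156 without cold library 1 or 2 or thermoneutral library 1, 2 or 3) and Mtx2 (1.05 ± 0.28; adjusted p = 0.0651 to 0.179 without cold library 1 or 2 or thermoneutral library 1, 2 or 3) of the outer membrane. Tomm20, an import receptor, did not pass (0.07 ± 0.28, adjusted p = 0.896). Timm23, the inner channel, had 71.5, 59.1 and 2.93 CPM in the cold and 15.7, 26.2 and 10.3 CPM at thermoneutrality, where cold library 3 was the lowest of all and the other cold libraries the highest (1.35 ± 0.88, adjusted p = 0.338). Of 76 mitochondrial ribosomal proteins 4 rose and 1 fell, Mrps2 by 2.01 ± 0.37 (adjusted p = 0.0127), with an adjusted p of 0.0559 to 0.06803 without cold library 2 or thermoneutral library 2. Mrpl37 rose by 1.33 ± 0.25 (adjusted p = 0.0131), with an adjusted p of 0.0532 to 0.0726 without a library numbered 1 or 2. Mrpl12 (0.76 ± 0.58) and Mrps5 (0.64 ± 0.47) did not pass. Rises there ran from 0 (without cold library 2 or thermoneutral library 2) to 10 (without cold library 3; 24 without both numbered 3). Dnm1l, the main fission protein, did not pass (0.31 ± 0.31, adjusted p = 0.539). Fusion and fission genes rose in 2 of 20 and fell in 2. Among fusion and fission genes the rises ran from 0 (without cold library 1 or 2 or thermoneutral library 1) to 2 (without cold library 3 or thermoneutral library 3; 5 without both numbered 3). In these genes the falls ran from 0 (without a library numbered 1 or 2) to 2 (without thermoneutral library 3; 2 without both numbered 3). Mfn2, a fusion protein, rose by 1.18 ± 0.28 (adjusted p = 0.0297), with an adjusted p of 0.0699 to 0.129 without a library numbered 1 or 2, and Opa3, of the inner membrane, by 1.47 ± 0.27 (adjusted p = 0.0119), with an adjusted p of 0.0524 to 0.0579 without cold library 1 or 2 or thermoneutral library 1.

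Among mitochondrial chaperones and proteases, 3 of 22 tested members rose, 1 fell and 18 did not pass. Letm1, which exchanges potassium for protons across the inner membrane, had 931, 1041 and 766 CPM in the cold and 115, 152 and 159.8 CPM at thermoneutrality. The cold libraries were at least a factor of 4 above the thermoneutral ones, and it rose by 2.68 ± 0.29 (adjusted p = 0.00217). Dnaja3, a chaperone of the matrix, had 389.8, 398 and 418 CPM in the cold and 78.5, 139 and 136 CPM at thermoneutrality and rose by 1.77 ± 0.31 (adjusted p = 0.0106). Immp2l, a peptidase of the inner membrane, had 13.6, 11.1 and 7.37 CPM in the cold and 52.2, 51.001 and 40.3 CPM at thermoneutrality and fell by 2.16 ± 0.303 (adjusted p = 0.00514). All 3 were stable, and the count of rises ran from 2 (without thermoneutral library 1 or 2) to 5 (without cold library 3 or thermoneutral library 3; 13 without both numbered 3). Hspd1, the main matrix chaperonin, and Lonp1, a protease, did not pass (1.01 ± 0.37 and 0.83 ± 0.29, adjusted p = 0.109 and 0.0967). In coenzyme Q, heme and iron 4 of 39 rose and 2 fell, rises running from 0 (without cold library 1 or thermoneutral library 1 or 2) to 10 (without cold library 3; 24 without both numbered 3). Slc40a1, the iron exporter, rose by 1.58 ± 0.33 (adjusted p = 0.02002), with an adjusted p of 0.0632 to 0.079000 without cold library 1 or thermoneutral library 1 or 2. Hmox2, a heme oxygenase, rose by 1.31 ± 0.26 (adjusted p = 0.0156), with an adjusted p of 0.0695 to 0.0836 without a library numbered 1 or 2. Tfrc, the transferrin receptor, had 31.3, 21.5 and 54.6 CPM in the cold and 171, 164 and 29.2 CPM at thermoneutrality, with thermoneutral library 3 among the cold values (−1.76 ± 0.63, adjusted p = 0.103). Alas1, which starts heme synthesis, did not pass (0.89 ± 0.303, adjusted p = 0.09196).

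**Figure D5:**
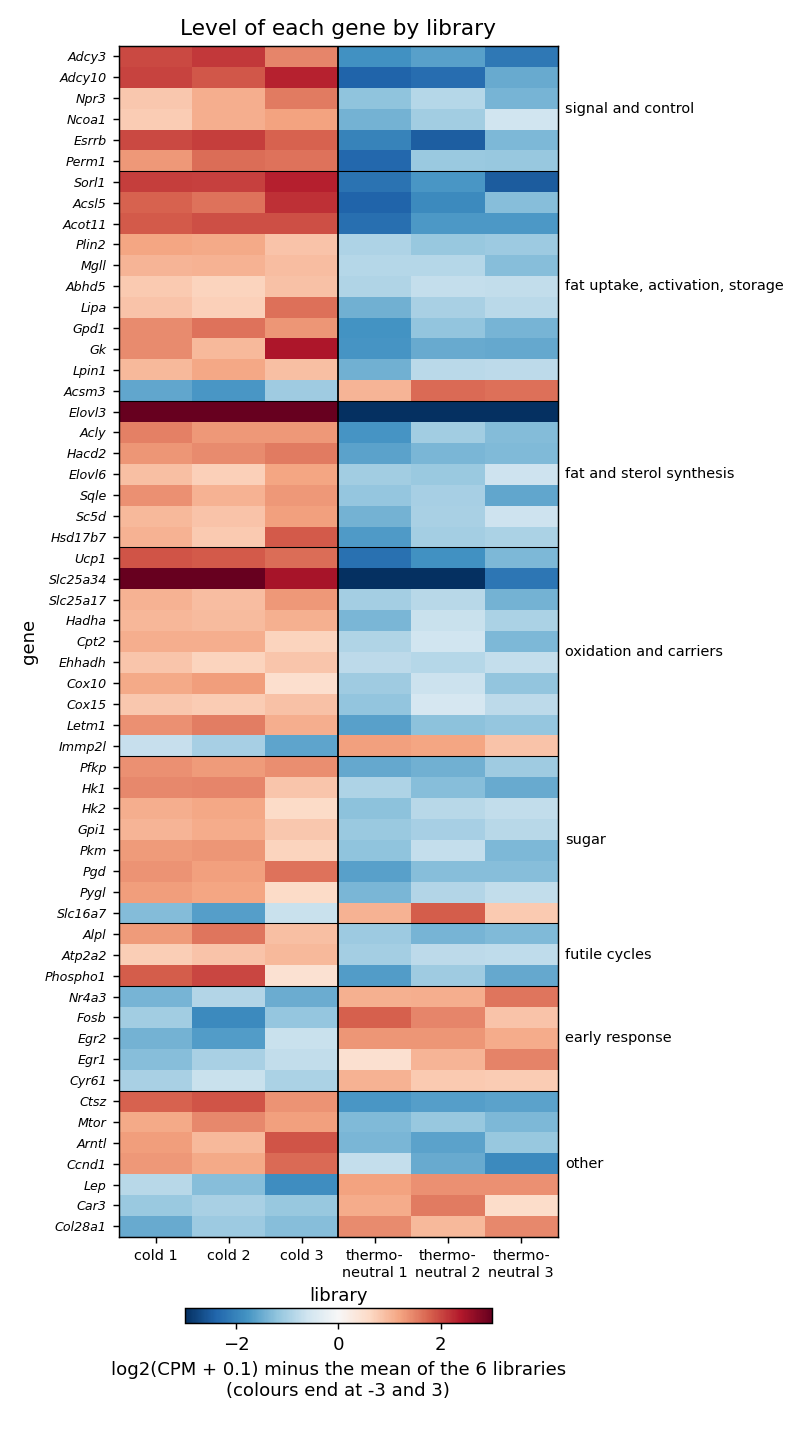
Log2(CPM + 0.1) of stable list members (rows, grouped by role) in each library (columns), minus the mean of the 6 libraries; red is above and blue below that mean, and colours end at −3 and 3. Every row is of one colour in the cold and of the other at thermoneutrality, with cold library 3 paler for Phospho1, Hk2 and Pygl and darker for Gk and Lipa.

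Cycles that spend energy without uncoupling had 3 stable members that rose. Alpl (ENSMUSG00000028766.10, chromosome 4, 137741733 to 137796384), tissue-nonspecific alkaline phosphatase, which splits phosphocreatine in brown fat mitochondria, had 87.9, 111 and 68.1 CPM in the cold and 17.1, 13.8 and 14.4 CPM at thermoneutrality and rose by 2.56 ± 0.28 (adjusted p = 0.00232). Phospho1, a phosphatase of phosphocholine, had 1357, 1526 and 522 CPM in the cold and 121, 183 and 133 CPM at thermoneutrality and rose by 2.97 ± 0.45 (adjusted p = 0.00689). Cold library 3 was the lowest of its group for both. Atp2a2, a calcium pump of the endoplasmic reticulum, had 375, 406 and 441 CPM in the cold and 109.7, 129 and 131 CPM at thermoneutrality and rose by 1.73 ± 0.26 (adjusted p = 0.00635). Ckb, creatine kinase B, had 237, 270.2 and 54.8 CPM in the cold and 24.99, 24.8 and 11.6 CPM at thermoneutrality, without overlap, and rose by 3.19 ± 0.61 (adjusted p = 0.0145), with an adjusted p of 0.0615 to 0.0639 without thermoneutral library 1 or 2. For creatine and calcium cycling, 6 of 34 members rose and 1 fell, and rises ran from 3 (without thermoneutral library 1 or 2) to 8 (without thermoneutral library 3; 13 without both numbered 3). Ion channels rose in 3 of 25 and fell in 1. Kcnk3, a potassium channel marker of brown fat, had 611, 767 and 427 CPM in the cold and 175, 179.8 and 155 CPM at thermoneutrality and rose by 1.82 ± 0.305 (adjusted p = 0.00903), with an adjusted p of 0.0507 to 0.0523 without cold library 2 or thermoneutral library 2, and Kcnj11, the pore of the ATP-sensitive potassium channel, rose by 2.49 ± 0.49 (adjusted p = 0.0158), with an adjusted p of 0.0513 to 0.0624 without cold library 1 or 2 or thermoneutral library 1. Rises there ran from 0 (without cold library 2) to 5 (without cold library 3; 8 without both numbered 3). Trpv2 had 1.48, 1.35 and 0.977 CPM in the cold and 3.89, 2.38 and 1.61 CPM at thermoneutrality (−1.05 ± 0.402, adjusted p = 0.124).

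Genes of insulin signalling rose in 4 of 32 and fell in 1, with 1 stable member. That was Mtor, a growth kinase under insulin and nutrients, which had 428, 526 and 455 CPM in the cold and 77.5, 87.6 and 76.7 CPM at thermoneutrality, without overlap, and rose by 2.54 ± 0.27 (adjusted p = 0.00175). Insr, the receptor, rose by 1.51 ± 0.303 (adjusted p = 0.017000), with an adjusted p of 0.0518 to 0.0715 without cold library 2 or thermoneutral library 1 or 2. Irs2, which couples the receptor to its kinases, had 25.6, 50.9 and 27.1 CPM in the cold and 63.1, 107 and 79.7 CPM at thermoneutrality, all cold libraries below all thermoneutral ones, and did not pass (−1.27 ± 0.35, adjusted p = 0.0509). The count of rises ran from 1 (without cold library 2 or thermoneutral library 1) to 6 (without thermoneutral library 3; 10 without both numbered 3). Retinoid genes rose in 3 of 21, all stable: Dhrs9 with 78.7, 83.5 and 133 CPM in the cold and 2.17, 2.22 and 8.204 CPM at thermoneutrality (4.54 ± 0.603, adjusted p = 0.00435), Dhrs7 with 553, 471 and 299 CPM in the cold and 95.8, 113 and 101 CPM at thermoneutrality (2.095 ± 0.31, adjusted p = 0.00646), and Retsat, retinol saturase, with 353, 344 and 318 CPM in the cold and 76.1, 111 and 62.1 CPM at thermoneutrality (2.03 ± 0.303, adjusted p = 0.00651). Aldh1a1, which makes retinoic acid, had 5.92, 6.203 and 7.17 CPM in the cold and 10.9, 15.8 and 22.96 CPM at thermoneutrality and fell by 1.36 ± 0.32 (adjusted p = 0.030000), with an adjusted p of 0.0947 to 0.122 without cold library 1 or 2 or thermoneutral library 2. Rbp4, the retinol carrier of blood, overlapped between groups (−0.67 ± 0.42). Of 40 phospholipid and sphingolipid genes 5 rose and 1 fell. Ptdss2, a phosphatidylserine synthase, had 152, 164 and 96.8 CPM in the cold and 35.9, 43.5 and 40.8 CPM at thermoneutrality (1.78 ± 0.29, adjusted p = 0.00826) and was the stable one, while Selenoi, of phosphatidylethanolamine synthesis, rose by 1.25 ± 0.24 (adjusted p = 0.0156), with an adjusted p of 0.06005 to 0.0717 without a library numbered 1 or 2. Pemt (−0.12 ± 0.41) and Sptlc1 (0.76 ± 0.24), which make phosphatidylcholine and sphingoid bases, did not pass. Rises in that list ran from 1 (without cold library 2 or thermoneutral library 1 or 2) to 7 (without cold library 3; 13 without both numbered 3).

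Secreted factors went both ways. Of 37 tested 5 rose and 3 fell. Besides Bmp8b, the stable rise was that of Fndc5, the precursor of irisin, with 50.4, 57.05 and 36.8 CPM in the cold and 5.11, 11.5 and 11.8 CPM at thermoneutrality (2.34 ± 0.38, adjusted p = 0.00813). Lep (ENSMUSG00000059201.12, chromosome 6, 29060220 to 29073877), leptin, the hormone of fat stores, had 11.98, 8.87 and 5.89 CPM in the cold and 50.2, 55.9 and 56.2 CPM at thermoneutrality. The thermoneutral libraries were alike and all cold ones far lower, and Lep fell by 2.602 ± 0.32 (adjusted p = 0.00314). Nnat, neuronatin, had 8.28, 9.32 and 6.17 CPM in the cold and 52.2, 51.98 and 20.5 CPM at thermoneutrality and fell by 2.39 ± 0.400 (adjusted p = 0.00931). Adipoq, adiponectin, had 464, 552 and 373 CPM in the cold and 726, 849 and 2046 CPM at thermoneutrality, without overlap, and did not pass (−1.38 ± 0.43, adjusted p = 0.0725). The rises ran from 2 (without cold library 1 or 2) to 5 (without cold library 3; 6 without both numbered 3) and the falls from 2 (without cold library 2 or thermoneutral library 2) to 5 (without cold library 3 or thermoneutral library 3; 11 without both numbered 3). Among BMP, TGF-beta and Wnt genes 2 of 40 rose and 3 fell, near the background. Among these signalling genes the rises ran from 0 (without a library numbered 1 or 2) to 3 (without cold library 3; 9 without both numbered 3). In this group the falls ran from 0 (without cold library 2 or thermoneutral library 1 or 2) to 3 (without cold library 3; 10 without both numbered 3). Gdf5 fell by 2.505 ± 0.48 (adjusted p = 0.0149), with an adjusted p of 0.0524 to 0.0646 without cold library 2 or thermoneutral library 1 or 2, and Smad9 rose by 2.03 ± 0.39 (adjusted p = 0.0149), with an adjusted p of 0.0603 to 0.0701 without a library numbered 1 or 2. Bmp4 (−0.57 ± 0.45) and Bmpr1a (0.16 ± 0.41) overlapped between groups.

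Vessel and matrix genes were near the background as lists in the fit of all 6 libraries. In angiogenesis 0 of 29 rose in edgeR (3 at an unadjusted p under 0.05, 3 past DESeq2, 0 past limma-voom) and 2 fell, falls running from 0 (without cold library 1 or 2) to 4 (without thermoneutral library 3; 9 without both numbered 3). Angpt1, an angiopoietin that steadies vessels, had 3.18, 2.57 and 6.31 CPM in the cold and 14.8, 19.9 and 31.4 CPM at thermoneutrality and fell by 2.45 ± 0.44 (adjusted p = 0.0116), with an adjusted p of 0.0509 to 0.05201 without cold library 1 or 2, and Pgf fell by 1.999 ± 0.49 (adjusted p = 0.0342), with an adjusted p of 0.0605 to 0.121 without cold library 1, 2 or 3 or thermoneutral library 1 or 2. Vegfa, the main growth factor of vessels, had 568, 617 and 494 CPM in the cold and 407, 431 and 762 CPM at thermoneutrality, with overlap (0.07 ± 0.32), and Kdr, its receptor, 199, 196 and 276 CPM in the cold and 162, 93.6 and 91.4 CPM at thermoneutrality (0.95 ± 0.32, adjusted p = 0.0903). Collagens rose in 2 of 28 and fell in 3, falls running from 2 (without a library numbered 1 or 2) to 5 (without thermoneutral library 3; 10 without both numbered 3). The stable falls were Col28a1, with 0.961, 1.32 and 1.14 CPM in the cold and 7.98, 5.83 and 8.11 CPM at thermoneutrality (−2.67 ± 0.31, adjusted p = 0.00283), a collagen of nerve sheaths, and Col20a1, with 2.77, 3.06 and 2.09 CPM in the cold and 13.03, 9.67 and 7.96 CPM at thermoneutrality (−1.95 ± 0.32, adjusted p = 0.00842). Col4a1, of basement membranes, rose by 1.58 ± 0.41 (adjusted p = 0.0395), with an adjusted p of 0.0551 to 0.124 without a library numbered 1 or 2, and Col1a1 overlapped between groups (0.53 ± 0.32). In elastic fibres and matrix remodelling 5 of 44 rose and 2 fell, rises running from 0 (without thermoneutral library 2) to 5 (without thermoneutral library 3; 13 without both numbered 3). Loxl1, which crosslinks elastin, had 152, 155 and 28.9 CPM in the cold and 8.57, 5.76 and 3.75 CPM at thermoneutrality, with cold library 3 far below the other cold libraries, and rose by 4.22 ± 0.66 (adjusted p = 0.00773), with an adjusted p of 0.0506 without thermoneutral library 2. Eln, elastin, rose by 1.51 ± 0.38 (adjusted p = 0.0348), with an adjusted p of 0.0557 to 0.1296 without cold library 1, 2 or 3 or thermoneutral library 1 or 2, and Ltbp2 fell by 1.39 ± 0.28 (adjusted p = 0.0164), with an adjusted p of 0.0602 to 0.0722 without a library numbered 1 or 2. Laminins, integrins and adhesion genes rose in 2 of 34 and fell in 1, the stable fall being Cdh23. Among adhesion genes the rises ran from 0 (without cold library 1 or 2 or thermoneutral library 2) to 2 (without cold library 3; 6 without both numbered 3). In the adhesion list the falls ran from 1 (without cold library 1 or 2 or thermoneutral library 1, 2 or 3) to 3 (without cold library 3; 8 without both numbered 3). Itgb1, an integrin chain (−0.04 ± 0.32), and Lama4, a vessel laminin (−0.12 ± 0.24), did not pass. Lamc3, also a laminin chain, rose by 2.18 ± 0.42 (adjusted p = 0.0157), with an adjusted p of 0.05201 to 0.0734 without cold library 1 or 2 or thermoneutral library 2.

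Immediate early genes, which cells switch on within minutes of a stimulus, had the largest share of falls of the 55 lists. Of 40 tested 14 (35%) fell, 2 rose and 24 did not pass, with a median of −1. Falls that were stable numbered 8, or 20% of the list against 0.766% of all genes. The number that fell ran from 8 (without cold library 1 or thermoneutral library 2) to 15 (without thermoneutral library 3), and was 21 without both libraries numbered 3. Nr4a3 (ENSMUSG00000028341.9, chromosome 4, 48045153 to 48086447), an orphan nuclear receptor that cyclic AMP induces, had 3.14, 4.51 and 2.93 CPM in the cold and 17.8, 18.1 and 25.7 CPM at thermoneutrality. All cold libraries were below all thermoneutral ones, and it fell by 2.54 ± 0.31 (adjusted p = 0.00314). Egr1 (ENSMUSG00000038418.7), a zinc finger factor induced by growth signals, had 6.32, 7.85 and 9.24 CPM in the cold and 21.5, 31.4 and 43.9 CPM at thermoneutrality and fell by 2.05 ± 0.33 (adjusted p = 0.00813). Cyr61, a matrix protein induced by stretch and serum, had 13.3, 16.4 and 13.5 CPM in the cold and 54.4, 45.3 and 44.7 CPM at thermoneutrality and fell by 1.74 ± 0.24 (adjusted p = 0.00513). None overlapped between groups. Fosb, of the AP-1 family, had 0.407, 0.174 and 0.363 CPM in the cold and 3.498, 2.74 and 1.78 CPM at thermoneutrality (−3.096 ± 0.46, adjusted p = 0.00634), and Egr2 0.259, 0.199 and 0.502 CPM in the cold and 2.31, 2.31 and 1.99 CPM at thermoneutrality (−2.77 ± 0.42, adjusted p = 0.00716), both at low levels. Fos itself had 1.63, 1.27 and 1.06 CPM in the cold and 3.86, 5.19 and 1.15 CPM at thermoneutrality, where thermoneutral library 3 lay among the cold ones, and did not pass (−1.36 ± 0.53, adjusted p = 0.127; 0.0172 without thermoneutral library 3). The members that rose were the phosphatase genes Dusp4 (1.48 ± 0.296; adjusted p = 0.0527 to 0.0774 without a library numbered 1 or 2) and Dusp6 (0.96 ± 0.24; adjusted p = 0.0947 to 0.147 without a library numbered 1 or 2), which switch off MAP kinases and were named after their values were seen.

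Windows before Nr4a3 and Egr2 are shown as members that fell together and whose windows held the short cyclic AMP element or a CArG box, the motif of serum response factor. Capitals mark TGACGT on either strand in both, and the CArG box in Egr2. Nr4a3 is at chr4:48045055-48045304 and Egr2 at chr10:67537680-67537929, both on the plus strand, the latter being one of several starts listed for the gene.
Nr4a3: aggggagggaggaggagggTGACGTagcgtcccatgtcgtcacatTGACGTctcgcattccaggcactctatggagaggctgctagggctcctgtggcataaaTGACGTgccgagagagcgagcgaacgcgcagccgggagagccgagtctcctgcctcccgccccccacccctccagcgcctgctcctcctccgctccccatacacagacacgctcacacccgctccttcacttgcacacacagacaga
Egr2: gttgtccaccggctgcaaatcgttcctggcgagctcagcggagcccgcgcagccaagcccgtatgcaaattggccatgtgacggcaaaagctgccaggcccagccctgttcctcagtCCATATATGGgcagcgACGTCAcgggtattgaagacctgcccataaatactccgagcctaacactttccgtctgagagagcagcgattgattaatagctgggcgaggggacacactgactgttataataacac
Nr4a3 held 3 copies of TGACGT, and Egr2 held 1 and a CArG box. Of the 10 immediate early genes that fell and had a window, 4 held TGACGT and 2 a CArG box, against 10.96% and 1.49% of all tested genes with a window. The numbers are small and the list was chosen for its regulation, so nothing is read from them about these factors in the cold.

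Among other stress lists, calls were fewer or rested on single libraries. Of 19 glucocorticoid targets 5 fell and 1 rose, and the falls ran from 0 (without cold library 1) to 6 (without thermoneutral library 3; 7 without both numbered 3). Errfi1, an inhibitor of EGF receptors, fell by 1.62 ± 0.29 (adjusted p = 0.0121), with an adjusted p of 0.0501 to 0.0672 without cold library 1 or 2 or thermoneutral library 1, and Tsc22d3, a direct target of the receptor, had 24.04, 30.9 and 35.8 CPM in the cold and 91.3, 103 and 64.3 CPM at thermoneutrality and fell by 1.51 ± 0.29 (adjusted p = 0.0149), with an adjusted p of 0.0551 to 0.0823 without a library numbered 1 or 2. Fkbp5, also a target, did not pass (−0.797 ± 0.37, adjusted p = 0.195). Cytosolic heat shock genes rose in 6 of 39 and fell in 2, rises running from 1 (without a library numbered 1 or 2) to 5 (without thermoneutral library 3; 16 without both numbered 3). Hspa4l, a large chaperone, had 72.1, 71.1 and 135 CPM in the cold and 19.4, 26.8 and 20.99 CPM at thermoneutrality, highest in cold library 3, and was the stable rise (2.05 ± 0.34, adjusted p = 0.008602). Hspa1a, the chaperone most induced by heat, had 5.77, 8.74 and 0.949 CPM in the cold and 158, 105 and 34.4 CPM at thermoneutrality, without overlap (−4.26 ± 0.84, adjusted p = 0.01597; 0.0544 to 0.06096 without cold library 1 or thermoneutral library 1 or 2). Its near-identical copy Hspa1b shares reads with it, so the 2 cannot be told apart. Hsph1, a related chaperone, overlapped between groups (0.305 ± 0.305). ER stress genes rose in 2 of 39 and fell in 2, near the background. Among stress genes the rises ran from 0 (without cold library 2 or thermoneutral library 1 or 2) to 3 (without cold library 3; 8 without both numbered 3). In the stress list the falls ran from 0 (without a library numbered 1 or 2) to 3 (without cold library 3 or thermoneutral library 3; 7 without both numbered 3). Atf6, a sensor of that stress, rose by 1.66 ± 0.32 (adjusted p = 0.0148), with an adjusted p of 0.05399 to 0.07302 without cold library 2 or thermoneutral library 1 or 2, and Calr, a calcium-binding chaperone, by 1.25 ± 0.26 (adjusted p = 0.0192), with an adjusted p of 0.0751 to 0.107 without a library numbered 1 or 2. Hspa5 (0.28 ± 0.25) and Atf4 (0.39 ± 0.35) did not pass. In antioxidant defence 7 of 37 rose and 2 fell, but rises ran from 0 (without a library numbered 1 or 2) to 7 (without cold library 3; 14 without both numbered 3). Cat, catalase, had 864, 869 and 863 CPM in the cold and 207, 348 and 384 CPM at thermoneutrality and rose by 1.47 ± 0.31 (adjusted p = 0.0201), with an adjusted p of 0.0605 to 0.08798 without a library numbered 1 or 2. Prdx3, a mitochondrial peroxiredoxin, did not pass (0.82 ± 0.25, adjusted p = 0.0682). Sod2, of mitochondria, rose by 1.14 ± 0.301 (adjusted p = 0.0431), with an adjusted p of 0.0622 to 0.173 without cold library 1 or 2 or thermoneutral library 1, 2 or 3, and Msra by 1.41 ± 0.27 (adjusted p = 0.0149), with an adjusted p of 0.06396 to 0.0783 without a library numbered 1 or 2.

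Of genes of protein synthesis, some fell, and of lysosomal genes, some rose. Of 78 cytosolic ribosomal protein genes 10 fell and 0 rose in edgeR (0 at an unadjusted p under 0.05, 0 past DESeq2, 0 past limma-voom), with a median of −0.57. The falls ran from 0 (without cold library 2 or thermoneutral library 2) to 16 (without thermoneutral library 3), so none was stable. Without both libraries numbered 3, 33 fell and 6 rose. Rpl23 fell by 1.35 ± 0.27 (adjusted p = 0.0157), with an adjusted p of 0.0542 to 0.0965 without cold library 1 or 2 or thermoneutral library 2. Rplp0 (−0.15 ± 0.501) and Rps6 (−0.64 ± 0.29) did not pass (adjusted p = 0.872 and 0.179). Many ribosomal protein genes have processed copies in the genome, and the authors' counting of such reads is not given. Genes of autophagy and the lysosome rose in 10 of 49 and fell in 0, from 1 (without cold library 2) to 12 (without cold library 3; 25 without both numbered 3). Ctsz (ENSMUSG00000016256.10, chromosome 2, 174427493 to 174439039), a lysosomal protease, had 1604, 1748 and 1202 CPM in the cold and 142, 152 and 155 CPM at thermoneutrality, the cold libraries at least a factor of 7 above the thermoneutral ones, and was the stable member (3.34 ± 0.297, adjusted p = 0.00116). Lamp1, of the lysosomal membrane, rose by 1.61 ± 0.28 (adjusted p = 0.0107), with an adjusted p of 0.0556 to 0.0604 without cold library 2 or thermoneutral library 2. Tfeb, the factor that controls lysosomal genes, had 22.6, 21.3 and 3.63 CPM in the cold and 15.4, 14.4 and 4.88 CPM at thermoneutrality, with library 3 lowest in each group (0.46 ± 0.66, adjusted p = 0.682). Proteasome genes rose in 1 of 43 and fell in 1. Among proteasome genes the rises ran from 0 (without a library numbered 1 or 2) to 2 (without cold library 3; 12 without both numbered 3). In the proteasome list the falls ran from 0 (without cold library 1, 2 or 3 or thermoneutral library 1 or 2) to 6 (without thermoneutral library 3; 9 without both numbered 3). Psmc4, of the regulatory particle, rose by 1.13 ± 0.25 (adjusted p = 0.0239), with an adjusted p of 0.0655 to 0.115 without a library numbered 1 or 2, and Psmb8, an immunoproteasome subunit, fell by 1.87 ± 0.48 (adjusted p = 0.0404), with an adjusted p of 0.0565 to 0.135 without cold library 1, 2 or 3 or thermoneutral library 1 or 2. Psma1, of the core, did not pass (−0.003 ± 0.31). Nfe2l1, which drives proteasome genes in cold-exposed brown fat, had 607, 639 and 551 CPM in the cold and 204, 330.04 and 343 CPM at thermoneutrality, without overlap, and did not pass (1.03 ± 0.29, adjusted p = 0.0551).

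Genes of the circadian clock changed in both directions. Of 25 tested 4 rose and 2 fell, with rises from 2 (without a library numbered 1 or 2) to 4 (without thermoneutral library 3; 5 without both numbered 3). Arntl, the core activator also called Bmal1, had 5.25, 4.33 and 8.12 CPM in the cold and 0.762, 0.6404 and 0.9198 CPM at thermoneutrality and rose by 2.92 ± 0.37 (adjusted p = 0.003596). Bhlhe40, a repressor that also answers to cold, had 231, 168 and 206 CPM in the cold and 19.1, 35.9 and 39.4 CPM at thermoneutrality and rose by 2.68 ± 0.35 (adjusted p = 0.00402). Both were stable and without overlap. Nr1d1, a repressor of Arntl, had 181, 219.8 and 184 CPM in the cold and 56.8, 63.8 and 105 CPM at thermoneutrality (1.38 ± 0.31; adjusted p = 0.0779 to 0.112 without a library numbered 1 or 2). The period genes Per3 (−1.47 ± 0.25; adjusted p = 0.0612 without cold library 1) and Per2 (−1.29 ± 0.33; adjusted p = 0.0503 to 0.153 without cold library 1, 2 or 3 or thermoneutral library 1, 2 or 3) fell and were named after their values were seen. The hour of collection is not given, and its part in these values was not tested. Splicing factors, named in the title of the series, rose in 4 of 76 and fell in 3, near the background, with a median of −0.24. Elavl3, a neuronal RNA-binding protein, had 3.77, 4.06 and 3.35 CPM in the cold and 0.649, 0.4803 and 0.695 CPM at thermoneutrality and was the stable member (2.61 ± 0.32, adjusted p = 0.00329). Prpf8, of the spliceosome core, rose by 1.21 ± 0.25 (adjusted p = 0.0193), with an adjusted p of 0.0649 to 0.102 without a library numbered 1 or 2. Srsf5 (−0.45 ± 0.37) and Nova1 (−0.14 ± 0.34) overlapped between groups. The counts are per gene and hold no splicing. Rises in that list ran from 1 (without a library numbered 1 or 2) to 5 (without thermoneutral library 3; 10 without both numbered 3) and falls from 0 (without a library numbered 1 or 2) to 7 (without cold library 3; 20 without both numbered 3).

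Cell cycle genes rose in 2 of 41 and fell in 1. Among cell cycle genes the rises ran from 1 (without a library numbered 1 or 2) to 2 (without cold library 3 or thermoneutral library 3; 3 without both numbered 3). In the cell cycle list the falls ran from 0 (without cold library 1 or 2 or thermoneutral library 1, 2 or 3) to 2 (without cold library 3; 6 without both numbered 3). Ccnd1, cyclin D1, had 36.5, 32.4 and 48.1 CPM in the cold and 8.88, 5.12 and 3.87 CPM at thermoneutrality, without overlap, and rose by 2.71 ± 0.37 (adjusted p = 0.004601), a stable call. Kif20a, a kinesin of dividing cells, rose by 1.72 ± 0.33 (adjusted p = 0.0152), with an adjusted p of 0.0614 to 0.0717 without a library numbered 1 or 2, and Mki67, a marker of dividing cells, had 3.25, 3.14 and 10.5 CPM in the cold and 3.95, 2.61 and 5.48 CPM at thermoneutrality, highest in cold library 3 (0.49 ± 0.52, adjusted p = 0.571). Of 40 interferon-stimulated genes 5 fell and 0 rose in edgeR (0 at an unadjusted p under 0.05, 0 past DESeq2, 0 past limma-voom), with a median of −0.58 and falls from 0 (without cold library 1 or 2 or thermoneutral library 2) to 8 (without cold library 3; 18 without both numbered 3). Gbp2, a guanylate-binding protein, had 15.1, 12.9 and 16.9 CPM in the cold and 36.4, 39.2 and 39.4 CPM at thermoneutrality and fell by 1.35 ± 0.24 (adjusted p = 0.0108), with an adjusted p of 0.0539 to 0.0691 without cold library 1 or 2 or thermoneutral library 2, and Cxcl10 fell by 1.68 ± 0.41 (adjusted p = 0.0325), with an adjusted p of 0.0949 to 0.127 without a library numbered 1 or 2. Isg15 (−0.72 ± 0.42) and Irf7 (−0.56 ± 0.36) did not pass.

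Markers of other cell types also varied between libraries, and their part in the results above was not tested. Muscle markers fell in 3 of 20 and rose in 0 (Mylpf, Myl1 and Pvalb, the fast-fibre genes), falls running from 0 (without cold library 1 or 2 or thermoneutral library 2) to 4 (without thermoneutral library 1; 3 without both numbered 3), and none of the 3 was stable. Acta1 had 917, 1069 and 302 CPM in the cold and 590.01, 1535 and 702 CPM at thermoneutrality. Muscle also holds Fndc5, Perm1 and Ucp3, which rose. Its marker sum was highest in thermoneutral 2 and 3 and, like Fndc5 and Perm1, lowest in thermoneutral 1. Blood was uneven: 9 erythrocyte markers summed to 2128, 2580.4 and 348 CPM in the cold and 895, 592 and 415 CPM at thermoneutrality, with cold library 3 the lowest. Hba-a1 had 745, 966 and 40.4 CPM in the cold and 248, 161 and 107 CPM at thermoneutrality, and 2 of 8 tested rose, Slc4a1 among them, with an adjusted p of 0.0611 to 0.0684 without a library numbered 1 or 2. The number ran from 0 (without cold library 1 or 2 or thermoneutral library 2) to 7 (without cold library 3; 7 without both numbered 3). Aqp1, which fell, is also a gene of red cells. Endothelial markers summed to 1396, 1489.8 and 1294 CPM in the cold and 1325, 791 and 867 CPM at thermoneutrality, and 1 of 16, Eng, rose, a count running from 0 (without cold library 2 or thermoneutral library 2) to 2 (without cold library 3 or thermoneutral library 3; 5 without both numbered 3). Macrophage markers summed to 102, 114 and 104 CPM in the cold and 156, 106 and 158 CPM at thermoneutrality, and 0 of 18 passed in edgeR (2 lower and 0 higher at an unadjusted p under 0.05, 2 past DESeq2, 1 past limma-voom). Progenitor and fibroblast markers summed to 472, 488 and 760.5 CPM in the cold and 795, 529 and 577 CPM at thermoneutrality, and 1 of 16, Pi16, rose, with an adjusted p of 0.124 to 0.196 without a library numbered 1 or 2. Schwann cell and nerve markers summed to 148, 144 and 152 CPM in the cold and 146, 169 and 122 CPM at thermoneutrality, where 1 of 10, S100b, rose, with an adjusted p of 0.0504 to 0.0711 without a library numbered 1 or 2. Lymphocyte markers summed to 23, 21.4 and 25.6 CPM in the cold and 21.04, 16.2 and 27.7 CPM at thermoneutrality, with overlap, and 2 of 17, Cd3g and Nkg7, fell, a count running from 0 (without a library numbered 1 or 2) to 3 (without thermoneutral library 3; 6 without both numbered 3). Mural cell and neutrophil and mast cell markers had 0 calls of 11 and 6 tested (1 and 1 lower, 1 and 0 higher at unadjusted p under 0.05). Of those 6, 4 rose and 0 fell without thermoneutral library 3 (3 and 1 without both numbered 3). Among adipocyte markers at large, Lep and Car3, carbonic anhydrase 3, fell, Car3 with 755, 823 and 736 CPM in the cold and 3514, 4778 and 2366 CPM at thermoneutrality (−2.203 ± 0.34, adjusted p = 0.00753), while Fabp4 (0.34 ± 0.31) and Plin1 (0.97 ± 0.39) did not pass. The single marker names given here without values were picked because they were called.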

How the data were processed

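Total RNA libraries of brown fat, 3 cold and 3 thermoneutral, were taken from a deposited table of 23163 genes. The authors deposited whole-number counts per gene, and STAR, DESeq2 and mm10 stand in the submitters' processing notes with no versions. How reads were counted, with which annotation and strand, is not given in the sources used here, so antisense and overlapping genes may share reads. Library totals were 29253388 to 56243016 counts, and intervals cover counting error only. Members were chosen by the temperature and tissue labels, and the 67 gene lists were chosen with earlier results of these data known.

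Genes passing filterByExpr (14612) were scaled by TMM over the 6 libraries and tested with edgeR 4.0.16 (quasi-likelihood, robust, R 4.3.3), with Benjamini-Hochberg adjustment over all genes and no covariate. Every adjusted p in the text comes from this tool unless another is named, and values after ± are standard errors of the log2 fold change, with n = 3 libraries in each group. Alternatives were RLE and upper quartile scaling, other filters, DESeq2 1.42.0, limma-voom (limma 3.58.1), all 12 libraries, each library left out, a block by number, and a correction for GC content, known for 96.0% of genes. Named genes were the 10 largest stable rises and 10 largest stable falls whose mean log2 CPM was 3 or more, up to 4 stable members of each list (or called members where under 2 were stable), and 2 key genes a list; genes chosen after their values were seen are said to be so. For marker lists of other cell types, sums, counts and key genes were to be given. Positions are of GENCODE M21 on mm10, and promoter windows of RefSeq on GRCm38.p6. A few genes that the naming rule selects are not reported here.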

Additional observations from a re-analysis of the deposited data

How the results depend on the processing

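Genes past the threshold numbered 996 higher and 781 lower as reported. They were 1524 and 1282 with DESeq2, 1157 and 1216 with the spread of all 12 libraries, and 1457 and 1644 after the correction for GC content. RLE scaling gave 1010 and 749, limma-voom 1003 and 715, and upper quartile scaling 774 and 1089. Leaving out 1 library gave 303 (without thermoneutral library 2) to 1378 (without cold library 3) higher genes and 146 (without cold library 2) to 1105 (without cold library 3) lower genes. Without both libraries numbered 3 there were 3265 and 3244, of which 1763 in all were among the 1777 calls reported. Stable calls were 115 higher and 44 lower with a filter of 1 CPM in 3 libraries, in place of 253 and 112. The cause of these differences was not tested, except that leaving out libraries leaves fewer samples.

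With the experiment number as a replicate block the counts were 1493 and 1306, and with that block and the GC correction 1689 and 1873. The block ended the calls of Gpr3, Acsm5, Mylpf and Pi16 among the 202 called genes followed, and 3 complex I genes were lower with it. The labels put the number after the letters Exp, without saying what an experiment shared. The deviations of same-numbered libraries from their group means correlated at 0.357, 0.07 and 0.312, against −0.432 to 0.281 for libraries of different numbers. One pair was under 0.1, so no pairing was taken as given and the fit without the block is the one reported.

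Of 298 gene results under 5942 gene and setting combinations, 332 passed only as reported and 171 only under the alternative. Of 202 called genes, 10 lost their call with upper quartile scaling, none of them stable, and 12 with the spread of all 12 libraries, 1 of them stable, Slc25a48. A called value of opposite sign was found for mt-Co1, at −1.04 (adjusted p = 0.00775) without both libraries numbered 3. Values that passed neither fit changed sign in 77 cases, of 25 genes. Of 2680 list counts under an alternative, 828 moved by more than 1.5 times. List medians near 0 (complex I, ATP synthase, mitochondrial DNA upkeep, mitochondrial ribosome, secreted factors, angiogenesis, laminins, ER stress, antioxidants, proteasome) changed sign with RLE or upper quartile scaling. Depth limited genes near 0 counts, such as Bmp8b, Acot5 and Tacr2 at thermoneutrality, whose ratios have wide counting intervals.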

Other observations

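Of the 365 stable calls, 93 were members of a gene list and 272, 179 higher and 93 lower, of none. The genes named here were picked from these 272 after their values were seen, so they are a description. Receptors and channels of the plasma membrane were among those that rose. Kcnh6, a voltage-gated potassium channel, held 219, 360 and 316 counts in the cold and 0 in every thermoneutral library. Tacr2, the receptor for neurokinin A, had 8.95, 12.2 and 6.53 CPM in the cold against 0, 2 and 4 counts, a ratio of 207 (94.6 to 564). Neither gene was above a few counts in any thermoneutral library. Chrna2, an acetylcholine receptor subunit described in beige fat, had 16.5, 18.8 and 12.3 CPM in the cold and 0.508, 0.8005 and 1.43 CPM at thermoneutrality and rose by 4.099 ± 0.44 (adjusted p = 0.0019000). Abcc8, which pairs with Kcnj11 in the ATP-sensitive potassium channel, had 6.99, 7.97 and 4.55 CPM in the cold and 0.282, 0.252 and 0.357 CPM at thermoneutrality and rose by 4.43 ± 0.38 (adjusted p = 0.00116). In neither did the groups overlap. Otop1, a proton channel, had 348, 321 and 256 CPM in the cold and 46.1, 79.4 and 54.6 CPM at thermoneutrality (2.36 ± 0.31, adjusted p = 0.00428). Lgr6, a receptor for R-spondins, had 222, 243 and 224 CPM in the cold and 16.3, 21.6 and 18.2 CPM at thermoneutrality, a gap of about 10 times between the groups (3.62 ± 0.27, adjusted p = 0.000727). Cnr1, the cannabinoid receptor, rose at a low level, from 0.113, 0.0915 and 0.0563 to 1.11, 0.747 and 2.46 CPM (4.04 ± 0.61, adjusted p = 0.007002).

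Enzymes and regulators also rose. Letmd1, a mitochondrial protein needed for heat production in brown fat, had 1086, 1118 and 1050.3 CPM in the cold and 214, 325 and 243 CPM at thermoneutrality (2.06 ± 0.28, adjusted p = 0.004798). Deptor, which inhibits the kinase mTOR, had 565, 564 and 1097 CPM in the cold and 86.8, 139 and 159.7 CPM at thermoneutrality, highest in cold library 3 (2.53 ± 0.395, adjusted p = 0.0076000), so that it and Mtor rose in the same libraries. Smarcd1, a subunit of a chromatin remodeller, had 158, 179 and 181 CPM in the cold and 19.5, 21.3 and 23.7 CPM at thermoneutrality (3.002 ± 0.26, adjusted p = 0.00116), and St3gal5, which makes the ganglioside GM3, 140.1, 153 and 140.2 CPM in the cold and 7.93, 12.97 and 24.8 CPM at thermoneutrality (3.24 ± 0.43, adjusted p = 0.00435). Both were several times above every thermoneutral library. Adam12, a metalloprotease, had 187, 244 and 317 CPM in the cold and 14.2, 14.2 and 28.6 CPM at thermoneutrality (3.72 ± 0.403, adjusted p = 0.00217), and Slc43a2, an amino acid transporter, 90.9, 86.6 and 71.4 CPM in the cold and 11.4, 13.5 and 11.7 CPM at thermoneutrality (2.77 ± 0.26, adjusted p = 0.00118). Fah, the last enzyme of tyrosine breakdown, rose by 2.72 ± 0.28 (adjusted p = 0.00159).

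Among falls, Ntrk3, a receptor for neurotrophin 3, had 83.1, 95.01 and 115 CPM in the cold and 493, 361 and 413 CPM at thermoneutrality and fell by 2.11 ± 0.28 (adjusted p = 0.00435). Ivns1abp, a kelch protein, had 67.8, 63.3 and 93.2 CPM in the cold and 385, 443 and 564 CPM at thermoneutrality and fell by 2.63 ± 0.31 (adjusted p = 0.00281). Wee1, a kinase that delays mitosis, had 1.52, 1.62 and 1.73 CPM in the cold and 6.57, 6.61 and 6.53 CPM at thermoneutrality, with the thermoneutral libraries nearly equal, and fell by 2.02 ± 0.28 (adjusted p = 0.00457). Mycl, of the MYC family, had 0.444, 0.722 and 0.865 CPM in the cold and 8.095, 9.72 and 10.6 CPM at thermoneutrality and fell by 3.79 ± 0.36 (adjusted p = 0.00126). All cold libraries were below all thermoneutral ones for each. Shisa7, a receptor-associated membrane protein, held 0, 1 and 0 counts in the cold against 70, 107 and 97. Rasd1, a small GTPase induced by glucocorticoids, had 17.6, 16.02 and 8.21 CPM in the cold and 72.4, 86.5 and 81.4 CPM at thermoneutrality, and Nupr1, a stress-induced chromatin protein, 9.28, 8.64 and 12.95 CPM in the cold and 29.2, 35.3 and 34.4 CPM at thermoneutrality. Rasd1 fell by 2.52 ± 0.34 (adjusted p = 0.00446) and Nupr1 by 1.68 ± 0.27 (adjusted p = 0.00781).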
